A study of Cucurbita pepo with 23 samples.

Results

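The secretory male nectary of squash (*Cucurbita pepo*) was set against the same organ one day earlier, at about the same hour of the day. The comparison used 6 of the 23 RNA-seq libraries of the series and every one of the 8861 genes in its table: 3 libraries of male nectaries at 0 hr (secretory, in open flowers 2–3 hr after dawn) and 3 of male nectaries at −24 hr (pre-secretory #1, closed buds with yellow corolla tips and no nectar). Both groups came from Crookneck Yellow Squash plants grown under a 16 hr day and 8 hr night, and both were made from nectaries dissected by hand, with no treatment and no genetic change. The clock hour at which each library was taken is not stated, nor is whether replicates came from separate plants. The p-values therefore measure the spread between libraries of a group, which may be technical. That spread was estimated from all 23 libraries in 8 groups of sex and stage, and not from these 6 alone.

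Squash nectaries store starch in plastids before the flower opens. During secretion, starch is broken down, its carbon is turned into sucrose, and sucrose leaves the cells through carriers of the SWEET family and can be split outside the cell by invertase. Water follows through aquaporins. A comparison at one hour of the day asks which genes differ between a filling and a secreting nectary when the daily rhythm of light is, by plan, in the same phase.

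Each gene is a melon transcript to which assembled squash sequences were matched, so reads of close copies may be split or shared between entries of one family. Each value is a read count scaled by the authors to the upper quartile of its library and rounded. Summed over genes, the values came to 15669202 to 16139522 per library at 0 hr and 13088284 to 13436007 at −24 hr, while the upper quartiles were 1081 to 1097 and 1031 to 1045. Every library had its highest mean correlation with the other libraries of its own group, between 0.966 and 0.977 at 0 hr and between 0.972 and 0.976 at −24 hr. The median SD of a gene's log2 values was 0.29 at 0 hr and 0.19 at −24 hr. The third 0 hr replicate was the one nearest to the −24 hr mean in 2780 (64.5%) of the 4313 genes called below, against 678 for the first and 855 for the second, and without it the same test called 1554 genes higher and 2890 lower. In bulk tissue, fewer cells of a type and less RNA per cell cannot be told apart. Means are given as mean ± SD of 3 libraries in normalized reads. They are not divided by transcript length, so that they rank genes by reads and not by molecules.

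Of the 8861 genes, 1554 (17.5%) were higher and 2759 (31.1%) were lower at 0 hr than at −24 hr, at a Benjamini-Hochberg adjusted p under 0.05 by limma and a change of at least 2-fold. The other 4548 genes were not called, and 5832 (65.8%) had an unadjusted p under 0.05. The 3 and 3 libraries did not overlap in 6632 genes (74.8%). The median change among called genes was 2.07 on the log2 scale for those higher and −1.88 for those lower. A change of at least 16-fold (a log2 change of 4) was reached by 214 of the genes higher and by 167 of those lower. The median log2 change of all genes was −0.35, and with TMM scaling, which moved this median to −0.06, 1968 genes were higher and 2185 lower, so that 47.4% of calls were higher in place of 36.0%.

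**Figure D1:**
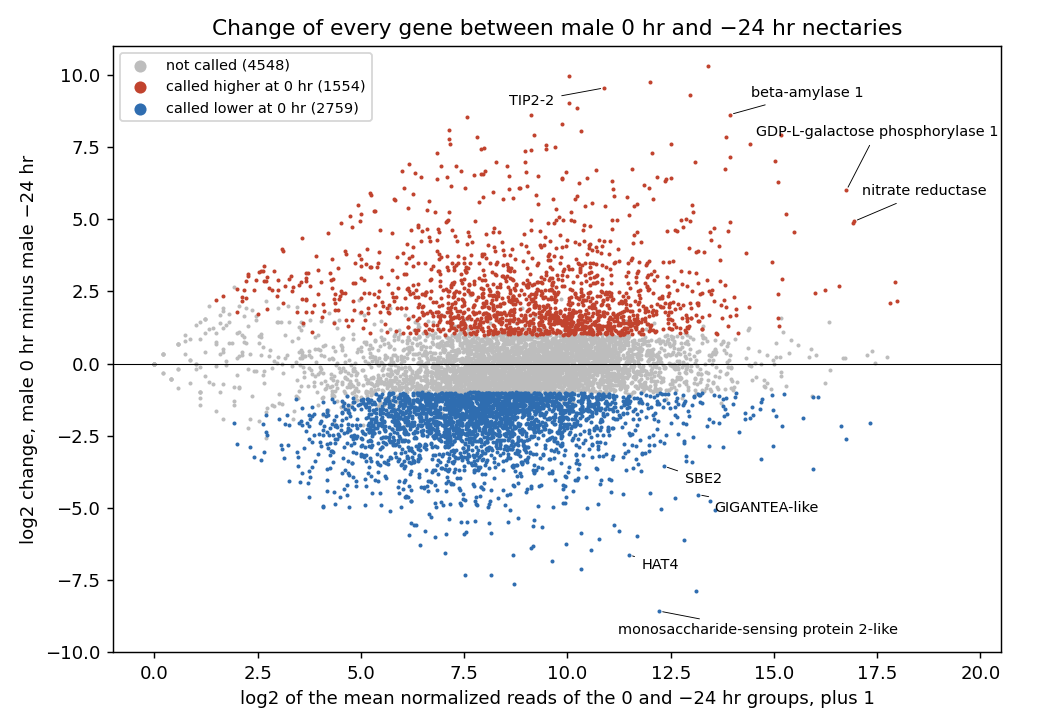
Each point is 1 of the 8861 genes, with the log2 of its mean level in the 2 groups on the x axis and its log2 change, male 0 hr minus male −24 hr, on the y axis. Red marks the 1554 genes called higher at 0 hr, blue the 2759 called lower and grey the 4548 not called. The widest upward changes reach past 9 and the widest downward ones past −8.

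The largest increases were in genes that were close to silent at −24 hr. The WAT1-related transporter At2g39510-like (XM_008465268.1) had 3911, 1701 and 723 normalized reads at 0 hr, against 0, 4 and 0 at −24 hr (log2 change of 9.95, SE 0.71, adjusted p = 4.0e-09). A gibberellin 2-beta-dioxygenase-like gene (XM_008441411.1), of a family that inactivates gibberellins, had 13097, 7180 and 4303 at 0 hr, against 3, 10 and 13 at −24 hr (log2 change of 9.76, SE 1.07, adjusted p = 3.9e-07). The water channel TIP2-2 (XM_008438844.1), of the vacuolar membrane, had 6959, 2840 and 1585 at 0 hr, against 4, 4 and 2 at −24 hr (log2 change of 9.55, SE 0.77, adjusted p = 1.6e-08). In all 3 genes the first 0 hr library was the highest and the third the lowest. Groups without overlap were a condition for naming the largest changes in each direction, so their separation is no separate result. Of all 4313 called genes, 4259 had no overlap, so later remarks that groups of a called gene lay apart only describe its values. The 22 kDa protein of photosystem II (XM_008468488.1) dissipates excess light as heat in leaves and had 20432, 15963 and 11500 at 0 hr, against 27, 22 and 23 at −24 hr (log2 change of 9.28, SE 1.26, adjusted p = 4.5e-06). Beta-amylase 1 (XM_008462489.1), which releases maltose from starch, had 52211, 27926 and 13762 at 0 hr, against 51, 116 and 53 at −24 hr (log2 change of 8.62, SE 0.42, adjusted p = 9.3e-11).

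The remaining genes of the 12 largest increases ran between log2 changes of 7.86 and 8.84. Glutaredoxin-C9 (XM_008441580.1), a thiol redox protein, averaged 2407 ± 634 at 0 hr and 4.67 ± 3.06 at −24 hr (log2 change of 8.84, SE 0.84, adjusted p = 8.4e-08). The phenylalanine ammonia-lyase-like gene (XM_008455917.1), the entry step of phenylpropanoid synthesis, averaged 1109 ± 651 at 0 hr and 2 ± 2 at −24 hr (log2 change of 8.61, SE 0.95, adjusted p = 4.3e-07). Shikimate O-hydroxycinnamoyltransferase (XM_008468642.1), an enzyme of the same route, averaged 2568 ± 549 at 0 hr and 8.67 ± 2.31 at −24 hr (log2 change of 8.06, SE 0.84, adjusted p = 2.4e-07). CDPK-related kinase 5 (XM_008442031.1), a protein kinase, averaged 1869 ± 499.5 at 0 hr and 5 ± 2 at −24 hr (log2 change of 8.31, SE 0.74, adjusted p = 4.5e-08). Allene oxide synthase-like (XM_008456662.1), which makes a precursor of jasmonate, averaged 447 ± 196 at 0 hr and 1 ± 1 at −24 hr (log2 change of 7.86, SE 0.78, adjusted p = 1.3e-07). A second WAT1-related gene, At4g30420-like (XM_008445587.1), had 301, 432 and 403 at 0 hr and was listed at 0 in all 3 libraries at −24 hr. The same held for TRANSPARENT TESTA 12 (XM_008448781.1), a flavonoid carrier in Arabidopsis seeds, with 372, 252 and 217 at 0 hr. With 10 in place of 1 added to each value, all 12 were still called, with log2 changes from 4.82 to 8.84. An uncharacterized gene (XM_008463074.1), outside the rule for named genes and picked after its values were seen, had the widest change in the table (log2 change of 10.30).

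The largest decreases were in regulators, a sugar carrier and membrane proteins. Monosaccharide-sensing protein 2-like (XM_008466597.1), a sugar carrier of the vacuolar membrane in Arabidopsis, had 6, 12 and 168 normalized reads at 0 hr, against 8779, 10030 and 9657 at −24 hr (log2 change of −8.57, SE 0.83, adjusted p = 9.9e-08). The first and second of its 0 hr libraries were at or below 12 and the third was at 168, and all lay far below −24 hr. The receptor kinase NSP-INTERACTING KINASE 3 (XM_008446130.1) had 3, 1 and 8 at 0 hr, against 782, 808 and 912 at −24 hr (log2 change of −7.65, SE 0.54, adjusted p = 3.3e-09). STICHEL (XM_008453967.1), which sets trichome branching in Arabidopsis, had 0, 3 and 9 at 0 hr, against 567, 414 and 714 at −24 hr (log2 change of −7.34, SE 0.65, adjusted p = 3.9e-08). UNUSUAL FLORAL ORGANS-like (XM_008456037.1), an F-box protein that acts with floral identity genes in Arabidopsis, had 17, 13 and 9 at 0 hr, against 1893, 1460 and 1388 at −24 hr (log2 change of −6.85, SE 0.47, adjusted p = 2.9e-09). Homeobox-leucine zipper protein HAT4 (XM_008450593.1), a shade response factor in Arabidopsis, had 19, 78 and 119 at 0 hr, against 4939, 5738 and 6433 at −24 hr (log2 change of −6.63, SE 0.63, adjusted p = 8.0e-08).

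The other genes of the 12 largest decreases had log2 changes between −7.31 and −6.29. They were ASPARTIC PROTEASE IN GUARD CELL 1-like (XM_008463762.1) at −7.31, cytochrome P450 CYP82D47-like (XM_008466548.1) at −7.13, the pentatricopeptide repeat gene At1g02150 (XM_008440000.1) at −6.57, lysophospholipid acyltransferase 1 (XM_008450755.1) at −6.47, Mlo1 (FJ713541.1), of a family known for mildew susceptibility, at −6.40, the E3 ubiquitin ligase BOI-like (XM_008460842.1) at −6.33, and putative auxin efflux carrier component 5 (XM_008445215.1) at −6.29. All 12 kept their call with 10 added to each value, with log2 changes from −7.90 to −3.95.

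The 10 genes with the highest means at 0 hr took 15.6% to 18.9% of each library's sum at 0 hr, and the same genes took 6.20% to 7.38% at −24 hr. A total of 5 of them were also among the 10 highest at −24 hr. The widest increase among them was that of GDP-L-galactose phosphorylase 1 (XM_008449496.1), the committed step of ascorbate synthesis, with 259875, 226905 and 166240 normalized reads at 0 hr, against 4390, 2458 and 3482 at −24 hr (log2 change of 6.0, SE 0.74, adjusted p = 1.6e-06). Nitrate reductase (XM_008462231.1), the entry step of nitrate assimilation, had 265021, 231930 and 232731 at 0 hr, against 9636, 5292 and 10028 at −24 hr (log2 change of 4.92, SE 0.67, adjusted p = 4.7e-06). Mitochondrial uncoupling protein 5-like (XM_008468672.1), an inner membrane carrier, had 176055, 198571 and 331422 at 0 hr, against 15535, 2093 and 13964 at −24 hr (log2 change of 4.88, SE 0.96, adjusted p = 2.3e-04), and its second −24 hr library was the lowest by far. ARG2-like (XM_008453336.1), named for its induction by auxin in mung bean, had 341767, 322060 and 443283 at 0 hr, against 101987, 62046 and 100249 at −24 hr (log2 change of 2.09, SE 0.71, adjusted p = 0.015). Its call was lost without the second −24 hr library (adjusted p = 0.057) and with quantile normalization (0.21).

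The high level of other genes was already present the day before. Sucrose-phosphate synthase 2 (*SPS2*, XM_008458932.1), which makes the precursor of sucrose, averaged 236611 ± 47288 at 0 hr and 197940 ± 8394 at −24 hr (log2 change of 0.24, SE 0.81, adjusted p = 0.81). Galactinol--sucrose galactosyltransferase 2 (XM_008462536.1), named as an enzyme of raffinose metabolism, averaged 181670 ± 14503 at 0 hr and 177580 ± 12932 at −24 hr (log2 change of 0.03, SE 0.64, adjusted p = 0.97), and transferase 6 (XM_008445736.1) averaged 200038 ± 92278 at 0 hr and 137739 ± 19422 at −24 hr (log2 change of 0.43, SE 0.54, adjusted p = 0.50). Cytosolic glyceraldehyde-3-phosphate dehydrogenase 2 (XM_008441195.1) averaged 177513 ± 78918 at 0 hr and 135990 ± 14603 at −24 hr (log2 change of 0.28, SE 0.48, adjusted p = 0.63). For these 4 genes the libraries of both groups overlapped, with the first 0 hr library below the whole −24 hr range for transferase 6 and the dehydrogenase.

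**Figure D2:**
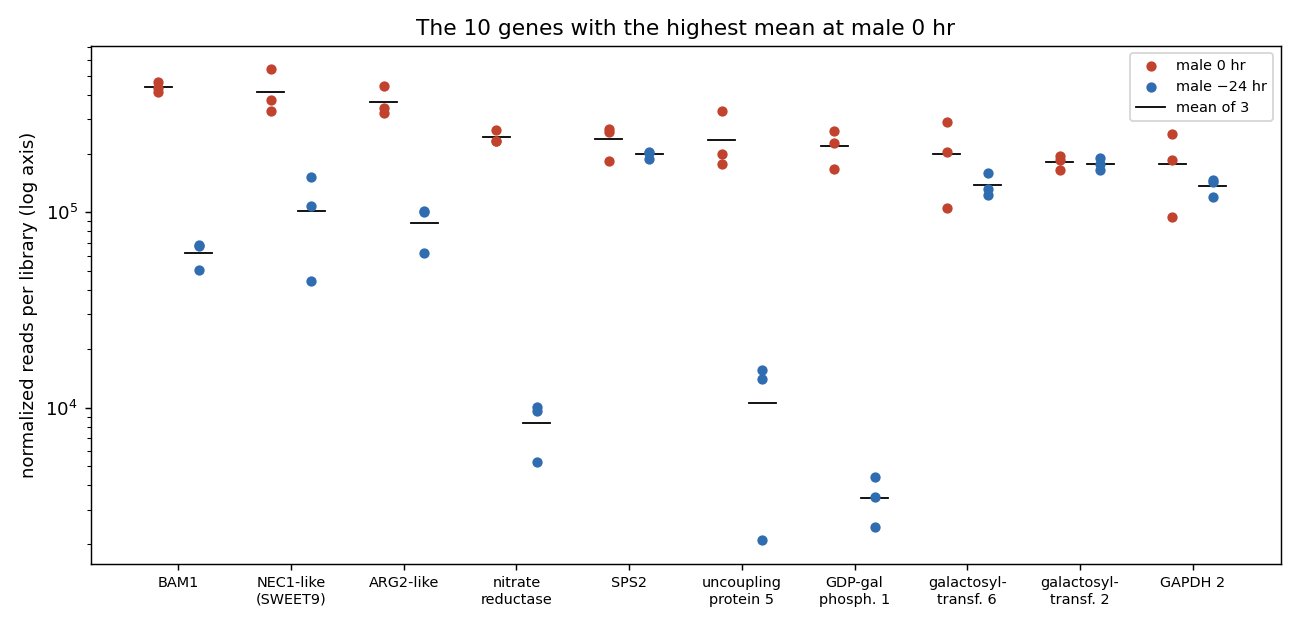
Normalized reads per library on a log axis for the 10 genes with the highest mean at male 0 hr, with the 3 libraries at 0 hr (red, left of each pair), the 3 at −24 hr (blue, right) and their means (bars). Nitrate reductase, uncoupling protein 5 and GDP-L-galactose phosphorylase 1 lie more than 10-fold apart between the groups, whereas *SPS2*, both galactosyltransferases and the dehydrogenase overlap.

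Starch synthesis was lower at 0 hr across nearly the whole pathway. Of its 9 genes, 7 were called lower and 0 higher by limma, against 31.1% lower among all genes (1 was above 0 at an unadjusted p under 0.05, and 1 was called higher with TMM scaling), and their median log2 change was −2.46. The small subunit of ADP-glucose pyrophosphorylase (AF030382.1), which makes the glucose donor for starch, had 1488, 2201 and 2252 normalized reads at 0 hr, against 12656, 10016 and 15105 at −24 hr (log2 change of −2.67, SE 0.42, adjusted p = 2.4e-05). The large subunit 1 (XM_008468318.1) had 631, 701 and 559 at 0 hr, against 3144, 3047 and 4330 at −24 hr (log2 change of −2.46, SE 0.38, adjusted p = 1.9e-05). The values at 0 hr were all below the lowest at −24 hr in both subunits. Starch synthase 3 (XM_008442822.1) and 4 (XM_008441438.1), which extend the chains, changed by −1.94 and −2.09 on the log2 scale. The branching enzymes *SBE2* (XM_008444588.1) and 1 (XM_008466627.1) changed by −3.56 and −3.29, and isoamylase 1 (XM_008455308.1), which trims misplaced branches, by −2.81. The granule-bound starch synthases, which make amylose, were the exceptions: synthase 2 (XM_008445178.1) averaged 464 ± 71.6 at 0 hr and 277 ± 57.1 at −24 hr (log2 change of 0.75, SE 0.28, adjusted p = 0.028, under the 2-fold limit) and synthase 1 (XM_008439233.1) averaged 1011 ± 389.9 at 0 hr and 1343 ± 402 at −24 hr (log2 change of −0.44, SE 0.70, adjusted p = 0.60).

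Of 18 genes of starch degradation, 3 were higher and 6 lower, 16.7% and 33.3% of the list, against 17.5% and 31.1% of all genes. The 3 higher were beta-amylases: *BAM1* (XM_008440214.1), with 465645, 412162 and 434746 normalized reads at 0 hr, against 67422, 50399 and 68420 at −24 hr (log2 change of 2.83, SE 0.66, adjusted p = 0.0011, or 0.060 with quantile normalization), the second beta-amylase 1 gene (XM_008462489.1) described above, and inactive beta-amylase 9 (XM_008460269.1), with 34570, 29061 and 28013 at 0 hr, against 1156, 1259 and 700 at −24 hr (log2 change of 4.92, SE 0.46, adjusted p = 6.2e-08). The name of the last marks a family member without catalytic activity in Arabidopsis. The genes lower included those that open the granule and handle its products. Glucan water dikinase (XM_008447957.1), which phosphorylates starch to loosen the granule, had 19932, 38177 and 61923 at 0 hr, against 140902, 144484 and 201605 at −24 hr (log2 change of −2.15, SE 0.56, adjusted p = 0.0028). Phosphoglucan water dikinase (XM_008455784.1), which acts after it, changed by −1.57. The debranching enzyme pullulanase 1 (XM_008448594.1) had 370, 506 and 529 at 0 hr, against 6432, 5187 and 5377 at −24 hr (log2 change of −3.60, SE 0.54, adjusted p = 1.5e-05). The maltose exporter of the plastid, maltose excess protein 1-like (XM_008464630.1), changed by −1.78. The cytosolic glucanotransferase DPE2 (XM_008457528.1), which uses that maltose, changed by −2.61, and the glucan phosphorylase of the H type (XM_008465841.1) by −2.06.

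The last 3 proteins stand in one chain from plastid maltose to cytosolic glucan in Arabidopsis leaves. DPE2 had 18931, 31328 and 47850 at 0 hr, against 158315, 192161 and 212083 at −24 hr, and the H phosphorylase had 46887, 53403 and 96682 at 0 hr, against 225920, 259972 and 296743 at −24 hr. Both groups were well apart in each, with the third 0 hr library the highest of its group. The call of the H phosphorylase (adjusted p = 0.021) was lost without the first (0.071) or the second (0.059) 0 hr library or the third at −24 hr (0.055, all adjusted p). At −24 hr this gene had the highest mean of any gene in the table. Alpha-amylase 3 (*AMY3*, XM_008448092.1) averaged 76757 ± 11519 at 0 hr and 90147 ± 9737 at −24 hr (log2 change of −0.24, SE 0.44, adjusted p = 0.66), and isoamylase 3 (XM_008467972.1), which debranches starch as it is broken down, averaged 31571 ± 1496 at 0 hr and 42580 ± 4656 at −24 hr (log2 change of −0.43, SE 0.49, adjusted p = 0.47). Neither passed the test.

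Among 16 genes of hexose phosphate and sucrose synthesis, 1 was higher and 6 were lower (6.25% and 37.5% of the list, against 17.5% and 31.1% of all genes). The one higher was cytosolic fructose-1,6-bisphosphatase (XM_008447539.1), which commits triose phosphate to sucrose, with 2145, 1891 and 2388 normalized reads at 0 hr, against 1122, 868 and 865 at −24 hr (log2 change of 1.17, SE 0.22, adjusted p = 1.2e-04). Plastid phosphoglucomutase (XM_008469031.1), which supplies glucose-1-phosphate to starch synthesis, had 191, 261 and 369 at 0 hr, against 2084, 2551 and 2550 at −24 hr (log2 change of −3.17, SE 0.47, adjusted p = 1.2e-05), while the cytosolic enzyme (XM_008468896.1) averaged 7991 ± 1790.2 at 0 hr and 13256 ± 674 at −24 hr (log2 change of −0.75, SE 0.19, adjusted p = 0.0024, under the 2-fold limit). Sucrose-phosphate synthase 1 (XM_008445712.1) averaged 14791 ± 1319.9 at 0 hr and 37639 ± 6417 at −24 hr (log2 change of −1.34, SE 0.31, adjusted p = 0.0012). A UTP--glucose-1-phosphate uridylyltransferase-like gene (XM_008447102.1), which makes UDP-glucose, averaged 113 ± 59.2 at 0 hr and 699 ± 241 at −24 hr (log2 change of −2.69). A UDP-glucose pyrophosphorylase entry (DQ445483.1), another name of this enzyme, had far higher values. It averaged 27214 ± 15357 at 0 hr and 50619 ± 3653 at −24 hr (log2 change of −1.06, SE 0.40, adjusted p = 0.028, or a change of −0.77 with TMM scaling). Sucrose-phosphatase 1 (XM_008444746.1), the last step, averaged 59433 ± 8135 at 0 hr and 94616 ± 16709.6 at −24 hr (log2 change of −0.66, SE 0.57, adjusted p = 0.32).

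Genes that split sucrose were higher in 4 of 12 cases and lower in 2 (33.3% and 16.7% of the list, against 17.5% and 31.1% of all genes). Sucrose synthase 5 (*SUS5*, XM_008464945.1), which cleaves sucrose with UDP, had 179272, 170963 and 155568 normalized reads at 0 hr, against 40535, 25023 and 17389 at −24 hr (log2 change of 2.69, SE 0.66, adjusted p = 0.0017, or 0.050 with quantile normalization). A second sucrose synthase gene (XM_008452746.1) had 285, 160 and 65 at 0 hr, against 7, 3 and 6 at −24 hr (log2 change of 4.58, SE 0.45, adjusted p = 1.2e-07), a gene that was near silent at −24 hr and low at 0 hr. The neutral invertases CINV2 (XM_008440750.1) and CINV1-like (XM_008455051.1), which split sucrose in the cytosol, changed by 1.25 and 1.23, whereas a further CINV2 gene (XM_008463700.1) changed by −1.41. The cell wall invertase *CWINV4* (XM_008446238.1), CWINV3-like in the melon annotation, had 866, 2494 and 4621 at 0 hr, against 8568, 10110 and 8374 at −24 hr (log2 change of −2.06, SE 0.58, adjusted p = 0.0047), and all its 0 hr libraries lay below the −24 hr range. Invertase 2 (FJ231520.1) averaged 60069 ± 11805 at 0 hr and 38861 ± 9728 at −24 hr (log2 change of 0.64, SE 0.38, adjusted p = 0.15), and a cell wall invertase 1-like gene (XM_008444640.1) averaged 12242 ± 4276 at 0 hr and 10795 ± 6674 at −24 hr (log2 change of 0.32, SE 0.54, adjusted p = 0.62).

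Of 29 sugar transporters, 5 were higher and 4 lower, shares of the list close to or under the 17.5% and 31.1% of all genes. The NEC1-like *SWEET9* (XM_008443590.1), the sucrose exporter of nectaries in Arabidopsis, lay at the edge of the threshold (log2 change of 2.17, SE 0.93, adjusted p = 0.0496), with 329298, 375013 and 539149 normalized reads at 0 hr, against 151449, 44688 and 107888 at −24 hr. The groups did not overlap, but the call was lost without any one library other than the first at −24 hr (adjusted p from 0.073 to 0.18) and with quantile normalization (adjusted p = 0.35). Sugar transport protein 14-like (XM_008467241.1) had 148, 187 and 130 normalized reads at 0 hr, against 0, 3 and 0 at −24 hr (log2 change of 6.60, SE 0.79, adjusted p = 1.2e-06), and protein 13 (XM_008451338.1) had 32, 40 and 84 at 0 hr, against 5, 6 and 1 at −24 hr (log2 change of 3.47, SE 0.94, adjusted p = 0.0034). Both belong to a family that takes hexoses into cells with protons. UDP-galactose/UDP-glucose transporter 2 (XM_008438985.1) changed by 2.35. Among those lower, plastidic glucose transporter 4 (XM_008463334.1), the carrier for glucose released from starch, had 350, 285 and 467 at 0 hr, against 3192, 3354 and 3455 at −24 hr (log2 change of −3.21, SE 0.34, adjusted p = 2.7e-07), and ERD6-like 6 (XM_008446496.1), of a family of vacuolar sugar exporters, had 6256, 12993 and 27851 at 0 hr, against 57523, 52418 and 68000 at −24 hr (log2 change of −2.17, SE 0.46, adjusted p = 4.4e-04).

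The list of raffinose family sugars had 1 gene higher and 2 lower of 8, 12.5% and 25% of the list, against 17.5% and 31.1% of all genes. Galactinol--sucrose galactosyltransferase 1 (XM_008465452.1) had 13451, 23464 and 36933 normalized reads at 0 hr, against 1490, 1393 and 3261 at −24 hr (log2 change of 3.58, SE 0.50, adjusted p = 6.4e-06), whereas transferases 2 and 6, at higher values, were not called. The paper names transferase 2 *SIP2* and transferase 6 *RAFS6*, and describes both as putative alpha-galactosidases. Galactinol synthase 2 (XM_008460096.1), which makes the galactosyl donor of raffinose, had 3, 0 and 26 at 0 hr, against 661, 147 and 234 at −24 hr (log2 change of −5.90, SE 1.57, adjusted p = 0.0030). Another gene, annotated as an alpha-galactosidase (XM_008447688.1), an enzyme that removes galactose from raffinose, was far lower than transferases 2 and 6. It had 6, 4 and 14 at 0 hr, against 42, 73 and 33 at −24 hr (log2 change of −2.56, SE 0.70, adjusted p = 0.0038).

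Among 17 water channels, 7 were higher and 5 lower, 41.2% and 29.4% of the list, against 17.5% and 31.1% of all genes. Beside TIP2-2, the largest increases were in PIP1-4, of the plasma membrane. One PIP1-4 gene (XM_008465000.1) had 108753, 77677 and 46984 normalized reads at 0 hr, against 4714, 2826 and 629 at −24 hr (log2 change of 5.18, SE 0.59, adjusted p = 5.8e-07), and the other (XM_008468703.1) had 3259, 2179 and 1345 at 0 hr, against 99, 63 and 10 at −24 hr (log2 change of 5.68, SE 0.76, adjusted p = 4.1e-06). In both, the third library was the lowest of its group at both stages. PIP2-2-like (XM_008451033.1) averaged 9161 ± 2607 at 0 hr and 4864 ± 1519 at −24 hr and was not called (log2 change of 0.92, adjusted p = 0.20). PIP1-2 (XM_008439071.1) had 72, 99 and 121 at 0 hr, against 903, 793 and 626 at −24 hr (log2 change of −2.99, SE 0.30, adjusted p = 1.5e-07). SIP1-1-like (XM_008443748.1) changed by −2.39. Proton pumps, which energize secondary transport, were seldom called. Among them, 1 of 25 was higher and 2 were lower (4% and 8% of the list, against 17.5% and 31.1% of all genes). The plasma membrane ATPase 4 (XM_008453341.1) averaged 71926 ± 22524 at 0 hr and 49437 ± 4543 at −24 hr (log2 change of 0.49, SE 0.32, adjusted p = 0.19), and the vacuolar pyrophosphatase (XM_008445704.1) averaged 43838 ± 15429 at 0 hr and 93243 ± 7318 at −24 hr (log2 change of −1.15, SE 0.37, adjusted p = 0.011, or 0.078 without the first 0 hr library and 0.053 with TMM scaling).

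Nuclear genes of the photosynthetic apparatus were higher at 0 hr in 14 of 28 cases and lower in 1, against 17.5% and 31.1% of all genes, with a median log2 change of 1.82. In 21 of the 28 genes the first 0 hr library was the highest and the third the lowest. The Rubisco small chain (XM_008448380.1), of the carbon-fixing enzyme, had 677, 154 and 115 normalized reads at 0 hr, against 1, 3 and 0 at −24 hr (log2 change of 6.85, SE 1.51, adjusted p = 6.7e-04). Oxygen-evolving enhancer protein 3-2 (XM_008443412.1) had 723, 245 and 114 at 0 hr, against 15, 1 and 1 at −24 hr (log2 change of 6.10, SE 0.88, adjusted p = 9.5e-06). Both were near 0 the day before and spread widely at 0 hr. The photosystem II 10 kDa polypeptide (XM_008453604.1) had 12715, 6439 and 4973 at 0 hr, against 2245, 1240 and 1308 at −24 hr (log2 change of 2.27, SE 0.58, adjusted p = 0.0023). The gene lower was chlorophyll a-b binding protein 8 (XM_008452076.1), an antenna protein, with 490, 90 and 24 at 0 hr, against 647, 452 and 386 at −24 hr (log2 change of −2.22, SE 0.70, adjusted p = 0.010), and there the first 0 hr library lay inside the −24 hr range. Without the third 0 hr library its adjusted p was 0.094, and in a fit of the 6 libraries alone 0.073.

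Of 36 chlorophyll and carotenoid genes, 13 were higher and 12 lower (36.1% and 33.3% of the list, against 17.5% and 31.1% of all genes, or 15 higher and 8 lower with TMM scaling). In the carotenoid route, phytoene desaturase (XM_008445078.1), an early step, averaged 267 ± 61.7 at 0 hr and 7.67 ± 2.89 at −24 hr (log2 change of 4.97, SE 0.76, adjusted p = 1.7e-05), while prolycopene isomerase (XM_008444750.1), the later isomerase, averaged 785 ± 283 at 0 hr and 6437 ± 1001 at −24 hr (log2 change of −3.10, SE 0.33, adjusted p = 3.3e-07). Beta-carotene hydroxylase 2, a later step, had entries in both directions. One (XM_008441064.1) averaged 169 ± 61.2 at 0 hr and 16.3 ± 12.7 at −24 hr (log2 change of 3.47, SE 0.74, adjusted p = 5.3e-04). The like-named entry (XM_008439103.1), at far higher values, averaged 3084 ± 861 at 0 hr and 7361 ± 1731 at −24 hr (log2 change of −1.27, SE 0.43, adjusted p = 0.016). With TMM scaling its change was −0.98, under the 2-fold limit. Carotene epsilon-monooxygenase (XM_008464290.1), of the lutein branch, changed by −2.29 and zeaxanthin epoxidase-like (XM_008446926.1) by −2.32. The chromoplast-specific carotenoid-associated protein (XM_008441828.1), which holds carotenoids in chromoplasts, averaged 21661 ± 3582 at 0 hr and 8756 ± 399.8 at −24 hr (log2 change of 1.29, SE 0.37, adjusted p = 0.0052). For chlorophyll, magnesium-chelatase subunit ChlH (XM_008462547.1), which inserts magnesium, averaged 561 ± 379.6 at 0 hr and 31 ± 15.6 at −24 hr (log2 change of 4.04, SE 0.91, adjusted p = 8.2e-04).

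In ascorbate synthesis, GDP-L-galactose phosphorylase 1 stood apart from its neighbours in the pathway. Of 19 genes, 4 were higher and 5 lower, 21.1% and 26.3% of the list, against 17.5% and 31.1% of all genes. GDP-mannose 3,5-epimerase 2 (XM_008457701.1), the step before the phosphorylase, averaged 5717 ± 271 at 0 hr and 6121 ± 416 at −24 hr (log2 change of −0.10, SE 0.19, adjusted p = 0.67). L-galactose dehydrogenase (XM_008456890.1), a later step, averaged 108 ± 19.2 at 0 hr and 452 ± 113 at −24 hr (log2 change of −2.03, SE 0.36, adjusted p = 7.9e-05). The 2 mannose-1-phosphate guanyltransferase genes parted, with the alpha-like one (XM_008454923.1) at 1.50 and the alpha one (XM_008445239.1) at −2.83 on the log2 scale. Transmembrane ascorbate ferrireductase 1 (XM_008467651.1) had 256, 209 and 97 normalized reads at 0 hr, against 5, 7 and 6 at −24 hr (log2 change of 4.65, SE 0.65, adjusted p = 6.5e-06).

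Clock genes were compared between libraries that were taken, by plan, at about the same time of day. The clock of plants runs on morning factors such as LHY and REVEILLE proteins and on pseudo-response regulators, GIGANTEA and evening complex proteins that peak later in the day in Arabidopsis. Of 27 genes, 5 were higher and 8 lower (18.5% and 29.6%), shares close to those of all genes. REVEILLE 2-like (XM_008441373.1) had 12409, 13393 and 14131 normalized reads at 0 hr, against 532, 452 and 324 at −24 hr (log2 change of 4.96, SE 0.56, adjusted p = 5.5e-07). An LHY-like gene (XM_008461602.1) had 10075, 5359 and 2484 at 0 hr, against 1363, 1451 and 1114 at −24 hr (log2 change of 1.98, SE 0.85, adjusted p = 0.049), and the other LHY-like gene (XM_008461600.1) had 95707, 54166 and 22774 at 0 hr, against 20838, 17112 and 12254 at −24 hr and was not called (log2 change of 1.59, SE 0.87, adjusted p = 0.12, or 0.024 in a fit of the 12 male libraries alone). The call of the LHY-like gene was lost without any one library other than the third at 0 hr (adjusted p from 0.080 to 0.19). In both LHY-like genes, the first 0 hr library was the highest and the third the lowest, and all 3 lay above the −24 hr range.

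Among the genes lower, APRR7 (XM_008449024.1), a pseudo-response regulator, had 291, 306 and 482 normalized reads at 0 hr, against 6911, 7790 and 8793 at −24 hr (log2 change of −4.47, SE 0.32, adjusted p = 4.7e-09). GIGANTEA-like (XM_008458521.1) had 518, 615 and 1319 at 0 hr, against 15245, 17253 and 20234 at −24 hr (log2 change of −4.54, SE 0.45, adjusted p = 1.2e-07). PCL1-like (XM_008459232.1), named after a gene of the evening complex, had 0, 5 and 7 at 0 hr, against 14, 46 and 88 at −24 hr (log2 change of −3.45, SE 0.91, adjusted p = 0.0028). Each was lower in all 3 libraries at 0 hr. EARLY FLOWERING 3 (XM_008464158.1), another evening complex gene in Arabidopsis, was higher, with 10465, 9350 and 6886 at 0 hr, against 3032, 2145 and 1776 at −24 hr (log2 change of 1.95, SE 0.29, adjusted p = 1.3e-05). APRR2 (XM_008467712.1), in the list by its name alone, averaged 39503 ± 16059 at 0 hr and 84064 ± 23954 at −24 hr (log2 change of −1.14, SE 0.92, adjusted p = 0.29, or 0.013 in a fit of the 12 male libraries alone). At the stages of −15 and +9 hr, APRR7 averaged 8656 at −15 hr and 4992 at +9 hr, GIGANTEA-like 33069 at −15 hr and 7567 at +9 hr, PCL1-like 515 at −15 hr and 143 at +9 hr and REVEILLE 2-like 665 at −15 hr and 464 at +9 hr. The part of sampling hour or light in these differences was not tested.

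**Figure D3:**
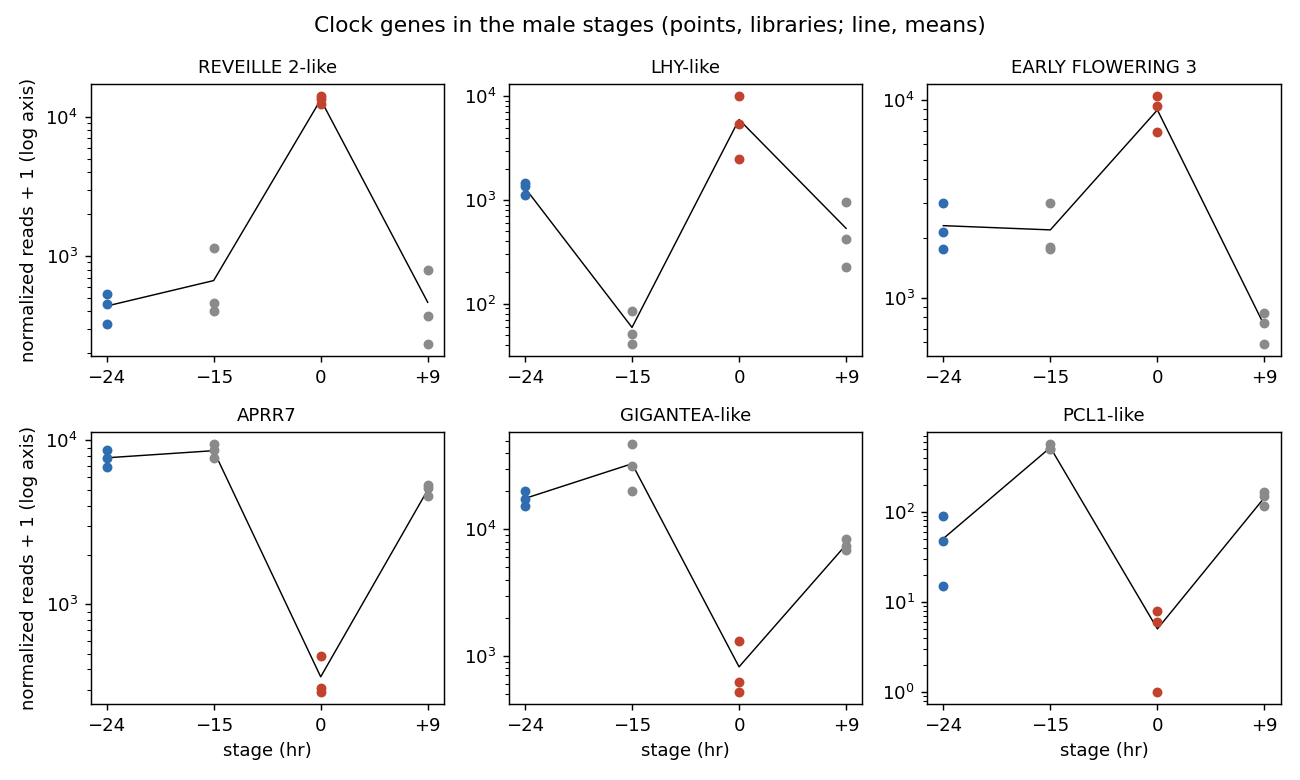
Normalized reads plus 1 on a log axis for 6 clock genes in the 4 male stages (x axis, stage in hr from −24 to +9), with points for the 3 libraries of each stage and a line through the means. Red points are 0 hr and blue points −24 hr. REVEILLE 2-like, LHY-like and EARLY FLOWERING 3 are highest at 0 hr, and APRR7, GIGANTEA-like and PCL1-like are lowest there.

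Both steps of nitrate reduction were higher at 0 hr. Of 33 genes of nitrogen assimilation, 15 were higher and 8 lower (45.5% and 24.2% of the list, against 17.5% and 31.1% of all genes). Ferredoxin--nitrite reductase (XM_008457899.1), which takes nitrite on to ammonium, had 23233, 13830 and 9826 normalized reads at 0 hr, against 520, 371 and 553 at −24 hr (log2 change of 4.95, SE 0.69, adjusted p = 6.3e-06), beside the increase of nitrate reductase given above. Transporters of the NRT1/PTR family, which carry nitrate, peptides or hormones, were among those called. NRT1/PTR 2.11-like (XM_008454950.1) had 12809, 9416 and 12376 at 0 hr, against 243, 112 and 85 at −24 hr (log2 change of 6.42, SE 0.61, adjusted p = 7.9e-08). NRT1/PTR 7.3-like (XM_008467720.1) had 70520, 64699 and 63309 at 0 hr, against 12597, 5532 and 9681 at −24 hr (log2 change of 2.91, SE 0.95, adjusted p = 0.012), and 4.6 (XM_008448088.1) changed by 4.96. NRT1/PTR 5.2-like (XM_008462446.1) had 130, 101 and 136 at 0 hr, against 2047, 1437 and 2190 at −24 hr (log2 change of −3.93, SE 0.47, adjusted p = 1.0e-06). Asparagine synthetase 2 (XM_008442373.1), which stores nitrogen in asparagine, averaged 29 ± 11.1 at 0 hr and 279 ± 89.5 at −24 hr (log2 change of −3.25, SE 0.77, adjusted p = 0.0013).

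Genes of GABA, an amino acid made from glutamate, numbered 3 higher and 4 lower of 10, 30% and 40% of the list, against 17.5% and 31.1% of all genes. GABA transporter 1-like (XM_008448565.1), a putative GABA carrier by its name, had 998, 453 and 210 normalized reads at 0 hr, against 48, 81 and 92 at −24 hr (log2 change of 2.67, SE 0.74, adjusted p = 0.0043). The like-named gene (XM_008448568.1) had 1, 0 and 3 at 0 hr, against 40, 20 and 15 at −24 hr (log2 change of −3.58, SE 1.07, adjusted p = 0.0071). Glutamate decarboxylase 4-like (XM_008468584.1), which makes GABA, averaged 651 ± 198 at 0 hr and 169.7 ± 104 at −24 hr (log2 change of 2.04, SE 0.86, adjusted p = 0.046). Its call was lost without any one library other than the third of each group (adjusted p from 0.10 to 0.12). Another decarboxylase (XM_008466382.1) averaged 14.7 ± 8.14 at 0 hr and 74.7 ± 44.1 at −24 hr (log2 change of −2.16, SE 0.51, adjusted p = 0.0013). Succinate-semialdehyde dehydrogenase (XM_008458063.1), which passes GABA carbon to the mitochondrial cycle, averaged 5523 ± 2302 at 0 hr and 9943 ± 1070 at −24 hr (log2 change of −0.92, SE 0.26, adjusted p = 0.0051, under the 2-fold limit).

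In central carbon metabolism, glycolysis had 5 of 31 genes higher and 11 lower, 16.1% and 35.5% of the list, against 17.5% and 31.1% of all genes. The increases were in phosphoglycerate mutase (XM_008447130.1), with 13256, 9947 and 8165 normalized reads at 0 hr, against 506, 336 and 461 at −24 hr (log2 change of 4.58, SE 0.49, adjusted p = 2.9e-07), in plastidial pyruvate kinase 1-like (XM_008456202.1), with 2082, 1722 and 772 at 0 hr, against 85, 102 and 135 at −24 hr (log2 change of 3.72, SE 0.40, adjusted p = 3.2e-07), and in a second cytosolic glyceraldehyde-3-phosphate dehydrogenase (XM_008441186.1), with 24974, 18903 and 12258 at 0 hr, against 3122, 2966 and 1519 at −24 hr (log2 change of 2.89, SE 0.54, adjusted p = 1.5e-04), among others. Triosephosphate isomerase (XM_008443835.1) and cytosolic pyruvate kinase (XM_008447687.1) changed by −2.07 and −1.94. Enolase (XM_008464309.1), the step before pyruvate kinase, averaged 115158 ± 30347 at 0 hr and 102433 ± 33158 at −24 hr (log2 change of 0.18, SE 0.37, adjusted p = 0.69).

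The pyruvate dehydrogenase complex and the tricarboxylic acid cycle had 0 genes higher and 9 lower of 25 by limma (0% and 36% of the list, against 17.5% and 31.1% of all genes), with 0 of the genes above 0 at an unadjusted p under 0.05, and 0 higher and 4 lower with TMM scaling. The E1 alpha subunit (XM_008458249.1), which starts the oxidation of pyruvate, averaged 1447 ± 530.0 at 0 hr and 5383 ± 1633 at −24 hr (log2 change of −1.92, SE 0.36, adjusted p = 1.4e-04). The E2 acetyltransferase genes (XM_008449401.1) and (XM_008458345.1) changed by −1.57 and −1.87. The succinyl-CoA ligase beta subunit (XM_008461725.1), the member with the highest values, averaged 111132 ± 15932 at 0 hr and 97086 ± 7679 at −24 hr (log2 change of 0.19, SE 0.53, adjusted p = 0.78). A list of 53 genes of the respiratory chain, ATP synthase and mitochondrial uncoupling proteins had 2 higher and 11 lower (3.77% and 20.8% of the list, against 17.5% and 31.1% of all genes, or 3 higher and 7 lower with TMM scaling). In 42 of these 53, and in 17 of the 25 genes above, the third 0 hr library was the highest of its group and the first the lowest. Both genes higher were uncoupling proteins, carriers of the inner membrane that are not parts of the chain or of the synthase, namely 5-like and 2 (XM_008465843.1), and protein 2 had 1576, 1286 and 1505 at 0 hr, against 709, 644 and 641 at −24 hr (log2 change of 1.13, SE 0.18, adjusted p = 3.2e-05). Uncoupling protein 1 (XM_008450752.1) changed by −1.80, cytochrome c oxidase subunit 5b-1 (XM_008449258.1) by −2.72 and ATP synthase subunit O-like (XM_008463669.1) by −2.18. The alternative oxidase of mitochondria, ubiquinol oxidase-like (XM_008467260.1), averaged 47597 ± 7866 at 0 hr and 36653 ± 259 at −24 hr (log2 change of 0.36, SE 0.62, adjusted p = 0.63).

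Peroxisomal genes numbered 6 higher and 11 lower of 46, 13% and 23.9% of the list, against 17.5% and 31.1% of all genes. Acyl-coenzyme A oxidase (XM_008455576.1), the first step of fatty acid oxidation, averaged 3254 ± 332 at 0 hr and 614 ± 86.8 at −24 hr (log2 change of 2.41, SE 0.39, adjusted p = 3.1e-05), and the acetate/butyrate--CoA ligase AAE7 (XM_008440716.1) averaged 3098 ± 1171 at 0 hr and 525 ± 113 at −24 hr (log2 change of 2.51, SE 0.43, adjusted p = 5.3e-05). The membrane protein PMP22 (XM_008441797.1) had 9, 4 and 14 normalized reads at 0 hr, against 448, 407 and 804 at −24 hr (log2 change of −5.86, SE 0.57, adjusted p = 1.2e-07), and the hydroxy-acid oxidase GLO4-like (XM_008462106.1) had 4, 4 and 12 at 0 hr, against 521, 251 and 231 at −24 hr (log2 change of −5.51, SE 0.73, adjusted p = 3.4e-06).

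Genes of translation were often lower at 0 hr. Of 160 cytosolic ribosomal protein genes, 95 were lower (59.4%) and 1 higher (0.625%), against 31.1% and 17.5% of all genes. Their median log2 change was −1.16, against −0.35 for all genes. With TMM scaling the median was −0.87 and 70 were lower. In 124 of them the third 0 hr library was the highest of its group and the first the lowest. 40S S24-1 (XM_008464503.1) had 3, 21 and 39 normalized reads at 0 hr, against 407, 235 and 287 at −24 hr (log2 change of −4.31, SE 0.65, adjusted p = 1.6e-05), and 40S S6-like (XM_008446630.1) had 118, 176 and 303 at 0 hr, against 1912, 1109 and 2214 at −24 hr (log2 change of −3.17, SE 0.38, adjusted p = 1.3e-06). The single increase was 60S L10-like (XM_008453563.1), with 6888, 5403 and 4882 at 0 hr, against 1070, 954 and 937 at −24 hr (log2 change of 2.52, SE 0.46, adjusted p = 1.0e-04). All its 0 hr values lay above the −24 hr range.

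Ribosomal proteins of plastids and mitochondria were lower in 40 of 53 genes (75.5%, against 31.1% of all genes) and higher in 1, with a median of −1.71. Plastid L12-like (XM_008445304.1) had 3377, 3190 and 3222 normalized reads at 0 hr, against 23680, 20312 and 29312 at −24 hr (log2 change of −2.89, SE 0.34, adjusted p = 1.0e-06), and plastid L18 (XM_008440799.1) had 6, 4 and 0 at 0 hr, against 166, 148 and 153 at −24 hr (log2 change of −5.58, SE 0.58, adjusted p = 2.0e-07). The gene higher was plastid L1 (XM_008463600.1), with 6762, 4459 and 3292 at 0 hr, against 851, 719 and 290 at −24 hr (log2 change of 3.04, SE 0.74, adjusted p = 0.0016). Ribosome biogenesis factors, which assemble the particles, had 17 of 38 lower and 1 higher (44.7% and 2.63% of the list, against 31.1% and 17.5% of all genes), and tRNA ligases, which load amino acids, 19 of 32 lower and 2 higher (59.4% and 6.25%). Asparagine--tRNA ligase of the organelles (XM_008450623.1) changed by −4.12 and cytosolic glutamate--tRNA ligase (XM_008452268.1) by −1.61, while methionine--tRNA ligase (XM_008458934.1) changed by 1.60. The splicing list had 27 of 95 lower and 6 higher, 28.4% and 6.32% of the list, against 31.1% and 17.5% of all genes. The proteasome, which degrades tagged proteins, was called in few genes. Of 42, 5 were lower and 1 higher (11.9% and 2.38%, against 31.1% and 17.5% of all genes). With TMM scaling 3 were higher and 3 lower.

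Cell cycle and replication genes numbered 4 higher and 9 lower of 30, 13.3% and 30% of the list, against 17.5% and 31.1% of all genes. Cyclin-A1-1 (XM_008468528.1) had 0, 3 and 0 normalized reads at 0 hr, against 39, 65 and 44 at −24 hr (log2 change of −4.95, SE 0.79, adjusted p = 2.8e-05), and cyclin-dependent kinase C-2-like (XM_008451636.1) changed by −2.97, whereas DNA polymerase alpha (XM_008459542.1), which starts DNA synthesis, had 549, 440 and 530 at 0 hr, against 106, 73 and 159 at −24 hr (log2 change of 2.22, SE 0.37, adjusted p = 4.8e-05). Histone genes were higher in 3 and lower in 5 of 21 (14.3% and 23.8% of the list, against 17.5% and 31.1% of all genes). Histone H2A (XM_008450158.1) had 43, 60 and 24 at 0 hr, against 1000, 814 and 560 at −24 hr (log2 change of −4.25, SE 0.78, adjusted p = 1.1e-04), and histone H4 (XM_008458542.1) had 4209, 2979 and 2469 at 0 hr, against 839, 769 and 727 at −24 hr (log2 change of 2.01, SE 0.47, adjusted p = 0.0011). The groups did not overlap in either.

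Of 43 genes of cellulose, hemicellulose and expansins, 9 were higher and 17 lower (20.9% and 39.5% of the list, against 17.5% and 31.1% of all genes, or 9 higher and 9 lower with TMM scaling). A xyloglucan endotransglucosylase/hydrolase (XM_008455396.1), which cuts and rejoins wall xyloglucan, had 1490, 2115 and 1903 normalized reads at 0 hr, against 15, 52 and 10 at −24 hr (log2 change of 6.43, SE 0.92, adjusted p = 8.8e-06), while another with a higher level at −24 hr (XM_008468726.1) had 1878, 1517 and 1371 at 0 hr, against 7998, 5977 and 9125 at −24 hr (log2 change of −2.27, SE 0.30, adjusted p = 3.4e-06). Cellulose synthase 7 (XM_008452289.1), of secondary walls in Arabidopsis, averaged 473 ± 248 at 0 hr and 32 ± 11.8 at −24 hr (log2 change of 3.78, SE 0.54, adjusted p = 8.7e-06), and cellulose synthase 3 (XM_008462538.1), of primary walls, averaged 218 ± 51.5 at 0 hr and 1607 ± 538 at −24 hr (log2 change of −2.84, SE 0.40, adjusted p = 7.8e-06). Expansin-like A2 (XM_008449662.1) had 76, 122 and 171 at 0 hr, against 3243, 1998 and 601 at −24 hr (log2 change of −3.74, SE 0.85, adjusted p = 8.5e-04), with a wide spread at −24 hr. Pectin genes were higher in 10 of 34 cases and lower in 9 (29.4% and 26.5% of the list, against 17.5% and 31.1% of all genes). These counts were 14 higher and 5 lower with TMM scaling, 6 higher and 7 lower without the second 0 hr library, and 6 higher and 9 lower without the third at −24 hr. Galacturonosyltransferase 14 (XM_008451929.1), named as an enzyme of pectin synthesis, averaged 1977 ± 231 at 0 hr and 402 ± 30.4 at −24 hr (log2 change of 2.29, SE 0.21, adjusted p = 5.0e-08), and a polygalacturonase (XM_008462667.1), which cuts pectin, averaged 1149 ± 256 at 0 hr and 159.7 ± 22.3 at −24 hr (log2 change of 2.82, SE 0.33, adjusted p = 8.5e-07). Galacturonosyltransferase 11 (XM_008455087.1) changed by −2.50.

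Auxin genes were lower in 10 of 31 cases and higher in 4, 32.3% and 12.9% of the list, against 31.1% and 17.5% of all genes. Auxin response factors, which act on auxin target genes, were among the lower ones: factor 8 (XM_008464905.1) had 42, 94 and 110 normalized reads at 0 hr, against 1771, 1987 and 1959 at −24 hr (log2 change of −4.63, SE 0.31, adjusted p = 1.8e-09), and factor 4 (XM_008465701.1) had 37, 44 and 94 at 0 hr, against 845, 877 and 1430 at −24 hr (log2 change of −4.23, SE 0.53, adjusted p = 2.1e-06). Groups were far apart in both. Among those higher, AIR12-like (XM_008463881.1), a membrane cytochrome named for its induction in root cultures, had 6062, 3957 and 2445 at 0 hr, against 158, 139 and 164 at −24 hr (log2 change of 4.65, SE 0.71, adjusted p = 1.6e-05), and the repressor IAA26-like (XM_008449337.1) averaged 1708 ± 163 at 0 hr and 489 ± 396 at −24 hr (log2 change of 2.11, SE 0.46, adjusted p = 5.7e-04).

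Genes with names tied to ethylene, among them ethylene-responsive factors, were higher in 13 of 36 cases and lower in 3, against 17.5% and 31.1% of all genes. For these genes a part in ethylene synthesis or signalling rests on the name and was not tested. Ethylene-responsive factor RAP2-1 (XM_008446377.1) had 6913, 5748 and 4834 normalized reads at 0 hr, against 400, 286 and 291 at −24 hr (log2 change of 4.16, SE 0.42, adjusted p = 1.6e-07), and factor 4-like (XM_008441597.1), a repressor in Arabidopsis, had 499, 552 and 457 at 0 hr, against 30, 21 and 16 at −24 hr (log2 change of 4.47, SE 0.53, adjusted p = 9.4e-07). TOE3 (XM_008442081.1), an AP2-like factor, was lower, with 405, 545 and 1011 at 0 hr, against 5385, 4509 and 4993 at −24 hr (log2 change of −3.03, SE 0.42, adjusted p = 6.0e-06). A 1-aminocyclopropane-1-carboxylate oxidase homolog (XM_008466495.1) changed by 1.50. The RAP2-12 gene (XM_008464027.1), a low-oxygen response factor in Arabidopsis, averaged 55636 ± 2756 at 0 hr and 31691 ± 590.4 at −24 hr (log2 change of 0.81, SE 0.32, adjusted p = 0.035, under the 2-fold limit).

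Jasmonate and oxylipin genes numbered 4 higher and 8 lower of 23, 17.4% and 34.8% of the list, against 17.5% and 31.1% of all genes. The widest decreases were TIFY 5A-like (XM_008453625.1), of the repressor family of jasmonate signalling, with 99, 176 and 475 normalized reads at 0 hr, against 17116, 11609 and 14045 at −24 hr (log2 change of −6.11, SE 0.58, adjusted p = 8.1e-08), and lipoxygenase LOX09 (KF888257.1), of a family that oxidizes fatty acids, with 66, 70 and 142 at 0 hr, against 3188, 4246 and 5693 at −24 hr (log2 change of −5.60, SE 0.50, adjusted p = 4.8e-08). A second allene oxide synthase (AF081954.1) averaged 304 ± 31.9 at 0 hr and 42.7 ± 4.73 at −24 hr (log2 change of 2.81, SE 0.89, adjusted p = 0.010), and 12-oxophytodienoate reductase 3 (XM_008452694.1), a later step toward jasmonate, averaged 44.7 ± 7.57 at 0 hr and 269 ± 43.0 at −24 hr (log2 change of −2.57, SE 0.43, adjusted p = 4.6e-05).

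Gibberellin and abscisic acid genes were higher in 9 of 20 cases and lower in 4 (45% and 20% of the list, against 17.5% and 31.1% of all genes). The DELLA protein GAIP-B (XM_008468906.1), a repressor of gibberellin responses, had 28052, 28557 and 24717 normalized reads at 0 hr, against 7112, 7065 and 7790 at −24 hr (log2 change of 1.89, SE 0.36, adjusted p = 1.8e-04). Of the abscisic acid receptors, PYL4-like (XM_008444150.1) had 2412, 2225 and 2003 at 0 hr, against 425, 395 and 459 at −24 hr (log2 change of 2.37, SE 0.28, adjusted p = 8.6e-07), whereas PYL8-like (XM_008439359.1) had 66, 62 and 109 at 0 hr, against 833, 942 and 1492 at −24 hr (log2 change of −3.77, SE 0.38, adjusted p = 1.6e-07) and PYL9 (XM_008439692.1) changed by −2.32. The groups did not overlap in any of these receptors. ABSCISIC ACID-INSENSITIVE 5-like protein 2 (XM_008445892.1), a bZIP factor, had 4, 9 and 7 at 0 hr, against 616, 322 and 44 at −24 hr (log2 change of −4.82, SE 1.13, adjusted p = 0.0012).

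Among transcription factors, the WRKY and NAC families, known for stress and ageing responses, were higher in 23 of 54 genes and lower in 6 (42.6% and 11.1%, against 17.5% and 31.1% of all genes), with a median log2 change of 1.07. The 3 widest increases were NAC genes. NAC 72-like (XM_008456444.1) had 15291, 6281 and 3628 normalized reads at 0 hr, against 85, 47 and 21 at −24 hr (log2 change of 7.29, SE 0.49, adjusted p = 1.8e-09). NAC ATAF (EF173162.1) had 21661, 17465 and 12472 at 0 hr, against 161, 92 and 156 at −24 hr (log2 change of 6.98, SE 0.46, adjusted p = 1.8e-09). NAC 55-like (XM_008454051.1) had 4160, 4565 and 9278 at 0 hr, against 38, 40 and 89 at −24 hr (log2 change of 6.74, SE 0.62, adjusted p = 5.6e-08), and it alone of the 3 had its highest value in the third library. NAC 2-like (XM_008445966.1), the member with the highest values at −24 hr, averaged 15902 ± 3098 at 0 hr and 14967 ± 4976 at −24 hr (log2 change of 0.13, SE 0.49, adjusted p = 0.84). WRKY 32 (XM_008445636.1) and WRKY 15 (XM_008464617.1) changed by −2.38 and −2.16.

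MYB genes were higher in 2 and lower in 7 of 26 (7.69% and 26.9% of the list, against 17.5% and 31.1% of all genes). *MYB305* (XM_008445303.1), a factor of nectary maturation in tobacco, had 114828, 128670 and 118650 normalized reads at 0 hr, against 47096, 41446 and 44062 at −24 hr, and its change did not pass (log2 change of 1.45, SE 0.68, adjusted p = 0.069), although the libraries did not overlap. In a fit of the 12 male libraries alone its adjusted p was 0.0062, in a fit of the 6 libraries alone 0.0014, and with TMM scaling 0.038. The repressor MYB6-like (XM_008461443.1) had 3563, 4591 and 5032 at 0 hr, against 1388, 1104 and 730 at −24 hr (log2 change of 2.07, SE 0.38, adjusted p = 1.3e-04), and myb-related protein 340-like (XM_008460558.1) had 82, 42 and 67 at 0 hr, against 534, 649 and 312 at −24 hr (log2 change of −2.94, SE 0.73, adjusted p = 0.0018). The bHLH and bZIP genes had 8 higher and 17 lower of 38, 21.1% and 44.7% of the list, against 17.5% and 31.1% of all genes. bHLH79 (XM_008454936.1), the member with the highest values at −24 hr, had 4917, 7567 and 12513 at 0 hr, against 57376, 55046 and 57531 at −24 hr (log2 change of −2.87, SE 0.71, adjusted p = 0.0017), and bHLH48 (XM_008444873.1) had 29, 47 and 56 at 0 hr, against 2404, 2719 and 2424 at −24 hr (log2 change of −5.85, SE 0.41, adjusted p = 2.9e-09). bHLH68-like (XM_008467411.1) had 6211, 2737 and 2496 at 0 hr, against 533, 573 and 240 at −24 hr (log2 change of 3.06, SE 0.55, adjusted p = 1.0e-04).

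Homeobox genes were higher in 5 and lower in 8 of 29 (17.2% and 27.6% of the list, against 17.5% and 31.1% of all genes, or 9 higher and 7 lower with TMM scaling). BEL1-like 7 (XM_008462878.1) had 1826, 1173 and 847 normalized reads at 0 hr, against 160, 156 and 120 at −24 hr (log2 change of 3.07, SE 0.47, adjusted p = 1.7e-05), while the like-named gene (XM_008462760.1) averaged 11933 ± 1623 at 0 hr and 12748 ± 100.3 at −24 hr (log2 change of −0.10, SE 0.45, adjusted p = 0.85). KNOTTED-1-like 6 (XM_008447965.1), of a family that keeps meristem cells undifferentiated, had 100, 96 and 121 at 0 hr, against 1242, 1686 and 1519 at −24 hr (log2 change of −3.79, SE 0.32, adjusted p = 2.7e-08).

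Chaperones and heat shock factors were higher in 26 of 98 genes and lower in 16 (26.5% and 16.3% of the list, against 17.5% and 31.1% of all genes). Heat stress factor C-1-like (XM_008460129.1) had 2235, 1107 and 907 normalized reads at 0 hr, against 23, 8 and 1 at −24 hr (log2 change of 7.44, SE 0.75, adjusted p = 1.6e-07). An 18.1 kDa class I heat shock protein-like gene (XM_008450453.1) had 370, 301 and 184 at 0 hr, against 3, 6 and 1 at −24 hr (log2 change of 6.17, SE 0.94, adjusted p = 1.7e-05), and the regulator BAG 2-like (XM_008460629.1) had 0, 3 and 5 at 0 hr, against 242, 330 and 76 at −24 hr (log2 change of −5.99, SE 0.76, adjusted p = 2.2e-06). The abundant heat shock cognate 70 kDa protein 2-like (XM_008460684.1), a housekeeping chaperone, averaged 28959 ± 1301 at 0 hr and 13209.7 ± 3473 at −24 hr (log2 change of 1.16, SE 0.52, adjusted p = 0.057, or 0.023 with TMM scaling).

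Autophagy and senescence genes, a list that included proteases of cell death, had 9 higher and 9 lower of 47 (19.1% and 19.1% of the list, against 17.5% and 31.1% of all genes, or 13 higher and 6 lower with TMM scaling). Aspartic proteinase PCS1 (XM_008458900.1), a cell survival protease in Arabidopsis, had 37567, 30901 and 25427 normalized reads at 0 hr, against 120, 533 and 156 at −24 hr (log2 change of 7.16, SE 0.62, adjusted p = 3.5e-08). Cysteine proteinase RD19a-like (XM_008449851.1) had 1736, 575 and 375 at 0 hr, against 19, 8 and 6 at −24 hr (log2 change of 6.06, SE 0.72, adjusted p = 1.1e-06), and vacuolar-processing enzyme-like (XM_008446271.1) had 15275, 13230 and 12529 at 0 hr, against 4870, 5966 and 7145 at −24 hr (log2 change of 1.20, SE 0.29, adjusted p = 0.0015). Metacaspase-4-like (XM_008450009.1) had 144, 205 and 280 at 0 hr, against 1977, 2345 and 2484 at −24 hr (log2 change of −3.47, SE 0.48, adjusted p = 5.9e-06), and metacaspase-9 (XM_008457556.1) changed by −2.67. E3 ubiquitin ligases, which choose proteins for degradation, were higher in 76 of 273 and lower in 51, 27.8% and 18.7% of the list, against 17.5% and 31.1% of all genes. U-box protein 4 (XM_008446339.1) had 8311, 6162 and 4790 at 0 hr, against 182, 143 and 94 at −24 hr (log2 change of 5.53, SE 0.41, adjusted p = 6.6e-09), and U-box protein 11-like (XM_008456548.1) had 78, 200 and 386 at 0 hr, against 3040, 3414 and 3432 at −24 hr (log2 change of −4.17, SE 0.43, adjusted p = 2.2e-07). The ligase At1g63170 (XM_008439865.1), a reference gene for qPCR, averaged 2930 ± 220.1 at 0 hr and 2840 ± 187 at −24 hr (log2 change of 0.04, SE 0.21, adjusted p = 0.87). The paper picked its qPCR reference for a stable level in these same RNA-seq samples, so the small change is no separate result.

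Calcium signalling genes were higher in 28 of 89 and lower in 19, 31.5% and 21.3% of the list, against 17.5% and 31.1% of all genes. The calcium sensor CML41 (XM_008468402.1) had 255, 159 and 102 normalized reads at 0 hr, against 0, 1 and 2 at −24 hr (log2 change of 6.47, SE 0.84, adjusted p = 2.7e-06), CBL-interacting kinase 2 (XM_008466042.1) had 31399, 28045 and 23638 at 0 hr, against 6091, 5537 and 5306 at −24 hr (log2 change of 2.29, SE 0.26, adjusted p = 5.0e-07), and calcium-dependent protein kinase 3 (XM_008453772.1) had 45, 134 and 142 at 0 hr, against 1042, 1185 and 1225 at −24 hr (log2 change of −3.58, SE 0.41, adjusted p = 7.0e-07). Of 8 14-3-3 proteins, which bind phosphorylated partners, 2 were higher and 2 lower (25% and 25%). GF14 iota (XM_008447230.1) averaged 766 ± 7.64 at 0 hr and 243 ± 36.7 at −24 hr (log2 change of 1.67, SE 0.29, adjusted p = 6.9e-05), and 14-3-3-like D (XM_008457085.1) averaged 1868 ± 432 at 0 hr and 6916 ± 186 at −24 hr (log2 change of −1.91, SE 0.31, adjusted p = 3.0e-05). Vesicle trafficking had 20 of 137 higher and 33 lower (14.6% and 24.1%, or 28 higher and 19 lower with TMM scaling). Syntaxin-31 (XM_008465002.1), a membrane fusion protein, had 2725, 3073 and 3088 at 0 hr, against 392, 393 and 313 at −24 hr (log2 change of 3.02, SE 0.22, adjusted p = 4.4e-09), RABE1c (XM_008450157.1) changed by 3.61, and RABD1 (XM_008454016.1) by −3.63. Both RAB proteins are small GTPases of membrane traffic.

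Phenylpropanoid and flavonoid genes were higher in 20 of 52 cases and lower in 11 (38.5% and 21.2% of the list, against 17.5% and 31.1% of all genes). Isoflavone 2′-hydroxylase (XM_008442106.1) had 14214, 10985 and 9326 normalized reads at 0 hr, against 89, 55 and 39 at −24 hr (log2 change of 7.59, SE 0.66, adjusted p = 3.3e-08), and 4-coumarate--CoA ligase-like 10 (XM_008438799.1) had 20010, 15284 and 8577 at 0 hr, against 443, 443 and 410 at −24 hr (log2 change of 4.99, SE 0.58, adjusted p = 8.4e-07). The groups were far apart in both. 4-Coumarate--CoA ligase-like 6 (XM_008462230.1) had 631, 1089 and 1221 at 0 hr, against 5041, 5218 and 4946 at −24 hr (log2 change of −2.42, SE 0.39, adjusted p = 3.4e-05), and caffeoylshikimate esterase (XM_008467558.1), of lignin synthesis in Arabidopsis, averaged 4485 ± 859 at 0 hr and 12011 ± 1232 at −24 hr (log2 change of −1.44, SE 0.35, adjusted p = 0.0017). Fatty acid, wax and cutin synthesis had 6 higher and 9 lower of 28 (21.4% and 32.1% of the list, against 17.5% and 31.1% of all genes, or 9 higher and 7 lower with TMM scaling). Long chain acyl-CoA synthetase 4-like (XM_008453721.1), which activates fatty acids, had 7990, 5452 and 3021 at 0 hr, against 96, 106 and 80 at −24 hr (log2 change of 5.75, SE 0.38, adjusted p = 1.8e-09), and acyl carrier protein 1-like (XM_008460274.1) had 22, 52 and 87 at 0 hr, against 439, 425 and 415 at −24 hr (log2 change of −3.17, SE 0.66, adjusted p = 3.9e-04).

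Peroxidase and thiol redox genes were lower in 39 of 93 cases and higher in 12, 41.9% and 12.9% of the list, against 31.1% and 17.5% of all genes. Thioredoxin-like 1-1 (XM_008467111.1) had 16399, 15278 and 10662 normalized reads at 0 hr, against 1566, 1778 and 1346 at −24 hr (log2 change of 3.16, SE 0.43, adjusted p = 4.4e-06), and catalase isozyme 3 (XM_008466617.1), which breaks down hydrogen peroxide, had 11, 3 and 3 at 0 hr, against 86, 206 and 51 at −24 hr (log2 change of −4.08, SE 0.84, adjusted p = 3.5e-04). Defence genes were lower in 12 of 26 cases and higher in 4 (46.2% and 15.4% of the list, against 31.1% and 17.5% of all genes). Thaumatin-like protein 1 (XM_008450326.1), of a family of antifungal proteins, had 84, 28 and 49 at 0 hr, against 4136, 3066 and 3040 at −24 hr (log2 change of −6.09, SE 0.63, adjusted p = 2.2e-07), while pathogenesis-related protein 5-like (XM_008446460.1), of the same family, had 3393, 2958 and 2304 at 0 hr, against 231, 453 and 158 at −24 hr (log2 change of 3.48, SE 0.70, adjusted p = 3.0e-04). A glucan endo-1,3-beta-glucosidase (XM_008459260.1) averaged 5718 ± 702 at 0 hr and 722 ± 188 at −24 hr (log2 change of 3.01, SE 0.30, adjusted p = 1.4e-07).

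**Figure D4:**
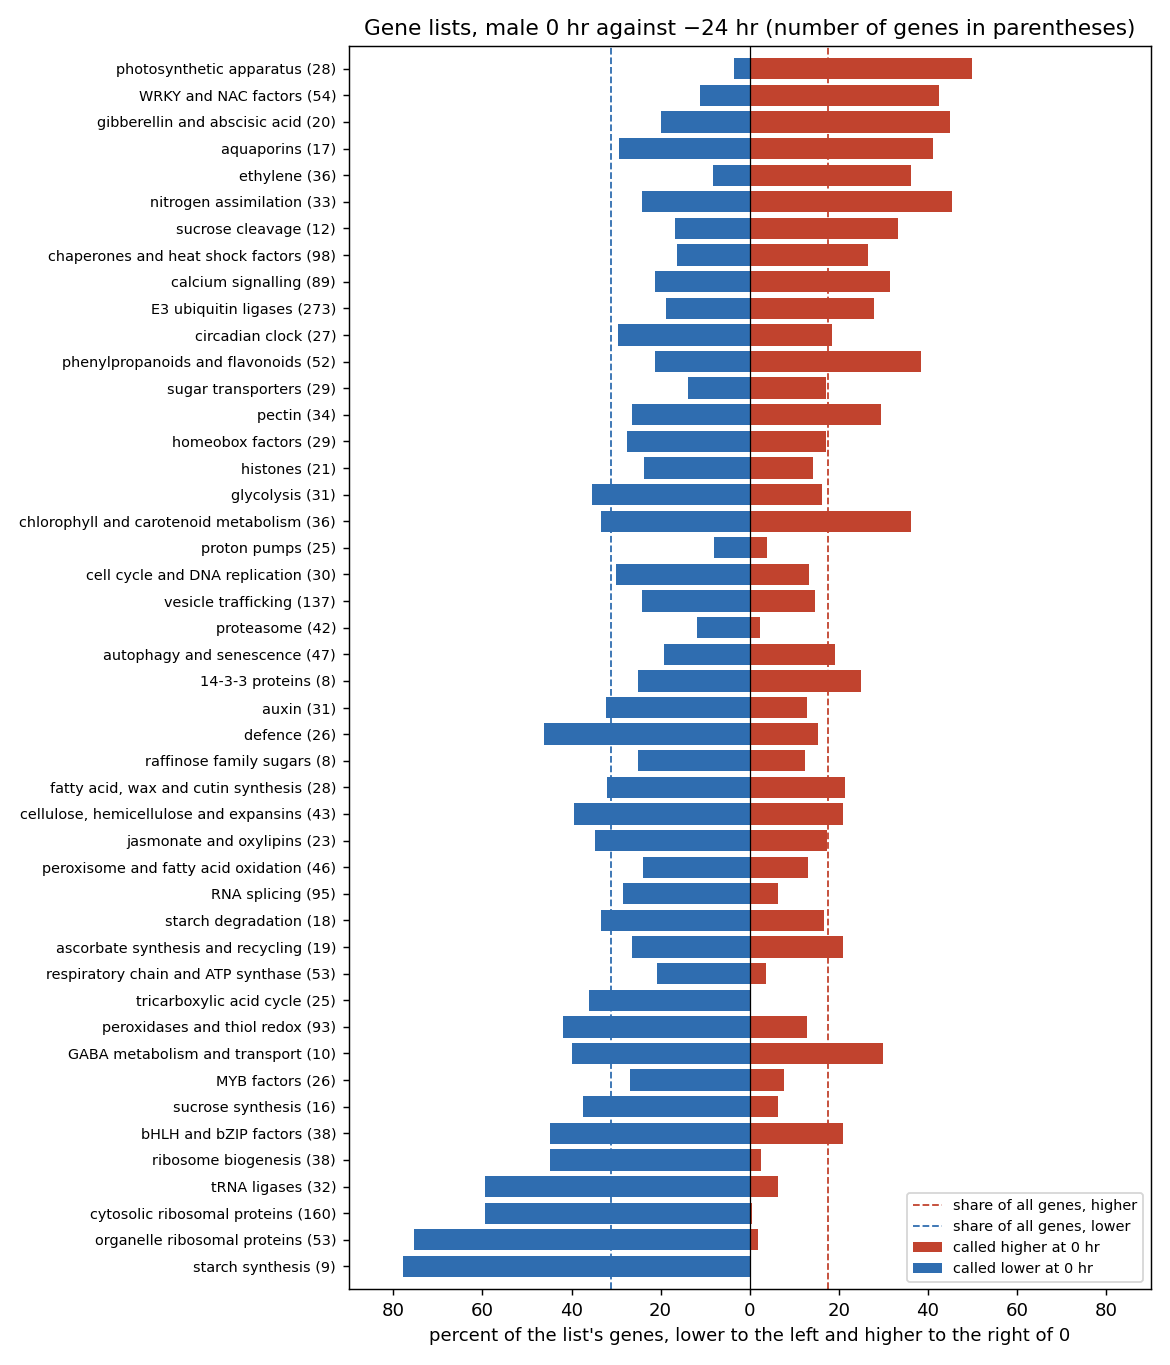
Percent of the genes of each of 46 lists (rows, with the number of genes) called higher at male 0 hr (red, to the right of 0) or lower (blue, to the left), ordered by median log2 change. Dashed lines mark the 17.5% of all genes called higher and the 31.1% called lower. The photosynthetic apparatus stands at the top and starch synthesis and the ribosomal proteins at the bottom.

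Markers of the dissected tissue and of its neighbours were measured beside these results. Their counts stand beside 17.5% of all genes called higher and 31.1% called lower. Of the 7 nectary marker genes, 1 was higher and 1 lower, and their summed level was 453238 to 679171 at 0 hr and 105628 to 225176 at −24 hr, most of it *SWEET9* and *MYB305*, while a MYB24-like and a second MYB305-like gene had at most 3 normalized reads in any of the 6 libraries. The 3 pollen and anther markers found were not called by limma (1 in each direction had an unadjusted p under 0.05, and 1 was higher with TMM scaling), with sums of 2554 to 4144 at 0 hr and 1761 to 2430 at −24 hr. Of these, pollen-specific SF21 (XM_008452609.1) averaged 1236 ± 122 at 0 hr and 644 ± 41.4 at −24 hr (log2 change of 0.94, SE 0.19, adjusted p = 3.3e-04), just under the 2-fold limit. Of 8 xylem markers, 1 was higher and 3 lower (1 and 1 with TMM scaling), with sums of 1269 to 1731 at 0 hr and 1123 to 1348 at −24 hr. Of 6 epidermis and cuticle markers, 3 were higher and 1 lower, with sums of 6649 to 10015 at 0 hr and 3390 to 4109 at −24 hr. A lipid-transfer protein At2g13820 (XM_008440430.1) accounted for much of that difference, with 6241, 4017 and 2554 at 0 hr, against 46, 117 and 21 at −24 hr (log2 change of 6.33, SE 0.63, adjusted p = 1.4e-07). The guard cell marker found, EPIDERMAL PATTERNING FACTOR 1-like (XM_008458453.1), a stomatal signal, had 466, 189 and 225 at 0 hr, against 58, 69 and 71 at −24 hr (log2 change of 2.03, SE 0.46, adjusted p = 8.7e-04). The lists of petal and stamen identity, phloem and organelle transcripts matched no gene name and are not analysed here. The part of tissue makeup in the results above was not tested.

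The same step in female nectaries, which shares no library with the male one, gave 2268 genes higher (25.6%) and 3363 lower (38.0%). Of the 1554 genes higher in male nectaries, 1268 (81.6%) were also higher in female nectaries, which was 55.9% of the female list. Of the 2759 lower in male nectaries, 2188 (79.3%) were also lower in female nectaries, 65.1% of the female list. A total of 22 genes were higher in male and lower in female nectaries, and 61 were lower in male and higher in female nectaries. The change itself differed between the sexes in 2872 genes (32.4%), with 1561 (17.6%) more positive and 1311 (14.8%) more negative in male nectaries. Of the 4313 male calls, 1530 (35.5%) were among them.

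In each of the 12 genes named for their difference between the sexes, male and female means lay further apart, as a ratio, at −24 hr than at 0 hr. *MYB305* (XM_008445303.1), with the male values given above, had 104104, 90598 and 100162 normalized reads at 0 hr, against 37, 64 and 37 at −24 hr in female nectaries. Its change was 1.45 in male and 11.08 in female nectaries, a difference of −9.63 (standard error 0.96, adjusted p = 1.2e-06). Zinc-finger homeodomain protein 9 (XM_008448127.1), a transcription factor, had 611, 813 and 1118 at 0 hr, against 3186, 2257 and 3111 at −24 hr in male nectaries. In female nectaries it had 788, 876 and 1161 at 0 hr, against 2, 0 and 2 at −24 hr, and the difference was −10.58 (adjusted p = 4.2e-10). A methyltransferase of the resveratrol di-O-methyltransferase type (XM_008457721.1) had 255, 254 and 325 at 0 hr, against 1783, 2192 and 4498 at −24 hr in male and 481, 1345 and 627 at 0 hr, against 4, 0 and 5 at −24 hr in female nectaries (−11.13, adjusted p = 4.8e-08). UDP-glycosyltransferase 82A1 (XM_008466454.1) had 751, 575 and 1139 at 0 hr, against 22692, 19609 and 21969 at −24 hr in male and 512, 1466 and 529 at 0 hr, against 4, 48 and 153 at −24 hr in female nectaries (−9.21, adjusted p = 7.7e-06). In these last 3 genes the male nectaries were lower at 0 hr than at −24 hr and the female ones higher.

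TIFY 5A-like (XM_008453625.1) had 66, 167 and 89 at 0 hr, against 26, 14 and 3 at −24 hr in female nectaries, beside the male values given above (−9.21, adjusted p = 2.7e-07). Salicylate carboxymethyltransferase-like (XM_008442534.1), an enzyme that methylates salicylate, was not called in male nectaries, with 128, 86 and 102 at 0 hr, against 446, 139 and 220 at −24 hr, and had 314, 2067 and 1694 at 0 hr, against 3, 0 and 0 at −24 hr in female nectaries (−10.54, adjusted p = 4.2e-06). In the other direction, aquaporin PIP2-7 (XM_008449725.1) had 706, 393 and 157 at 0 hr, against 87, 113 and 20 at −24 hr in male and 729, 526 and 606 at 0 hr, against 5439, 3430 and 3253 at −24 hr in female nectaries (5.24, standard error 0.81, adjusted p = 9.1e-05). The subtilisin-like protease (XM_008452714.1) had 14, 9 and 12 at 0 hr, against 144, 152 and 110 at −24 hr in male and 1, 30 and 13 at 0 hr, against 2911, 3022 and 2238 at −24 hr in female nectaries (4.71, adjusted p = 0.0068). The mitochondrial glycine-rich RNA-binding protein 3-like gene (XM_008451947.1) had 50, 68 and 131 at 0 hr, against 200, 135 and 161 at −24 hr in male and 47, 82 and 59 at 0 hr, against 12232, 7774 and 2464 at −24 hr in female nectaries (5.55, adjusted p = 3.9e-05).

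Cytosolic ribosomal proteins belonged to the genes whose decrease was wider in female nectaries. Of 160 cytosolic ribosomal protein genes, 156 had a more positive change in male nectaries and 0 a more negative one by limma (0 at an unadjusted p under 0.05 and 0 with TMM scaling), beside the 17.6% and 14.8% of all genes. Their median log2 change was −1.16 in male and −4.57 in female nectaries. 60S L24-like (XM_008444557.1) had 55, 74 and 110 at 0 hr, against 349, 241 and 256 at −24 hr in male and 49, 62 and 74 at 0 hr, against 8598, 6991 and 2697 at −24 hr in female nectaries (4.61, adjusted p = 2.1e-05). NAP1-related protein 2 (XM_008442967.1), a histone chaperone, had 55, 107 and 121 at 0 hr, against 250, 220 and 240 at −24 hr in male and 30, 84 and 88 at 0 hr, against 5334, 4118 and 2493 at −24 hr in female nectaries (4.55, adjusted p = 4.6e-05), and TSJT1-like (XM_008441655.1), first named for expression in tobacco stems, had 133, 107 and 98 at 0 hr, against 37, 27 and 0 at −24 hr in male and 186, 203 and 465 at 0 hr, against 1106, 388 and 430 at −24 hr in female nectaries (4.59, adjusted p = 0.023). For the 9 genes of starch synthesis, 0 differences between the sexes were called (1 at an unadjusted p under 0.05, also called with TMM scaling), and 7 of them were lower in both sexes. Sex and the maturity of the nectaries at −24 hr cannot be told apart in these libraries.

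**Figure D5:**
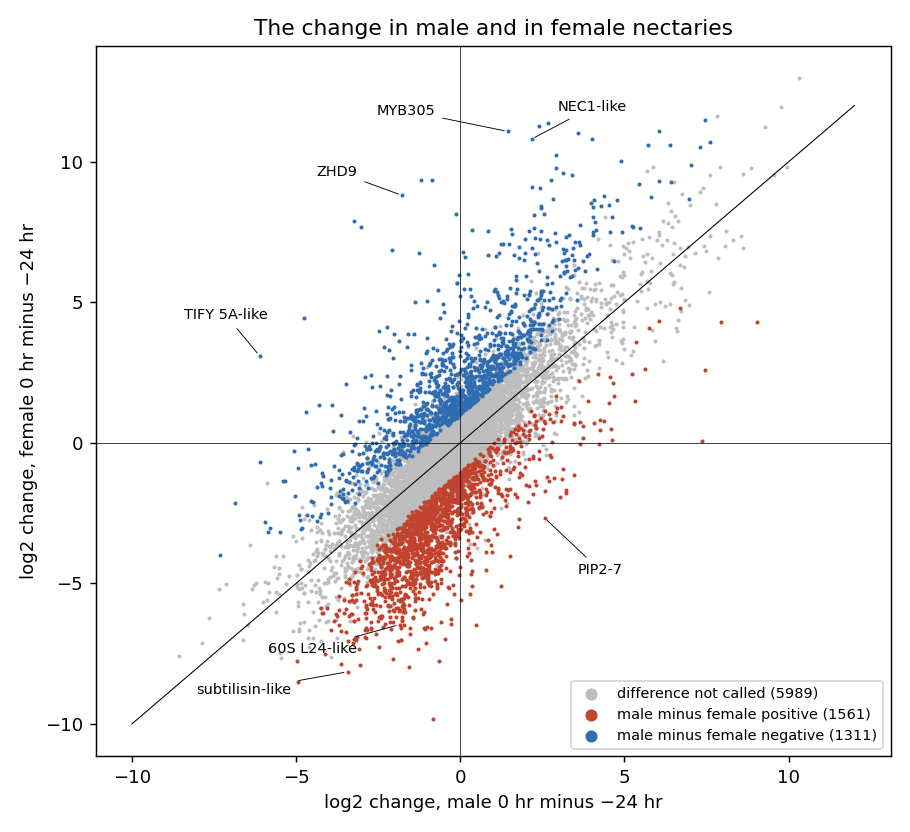
Each point is a gene, with its log2 change from male libraries (x axis, 0 hr minus −24 hr) and from female libraries (y axis). Red marks 1561 genes with a more positive change in male nectaries, blue 1311 with a more negative one and grey those without a called difference. The line marks equal changes, and most points lie where both sexes changed in the same direction.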

How the data were processed

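The deposited table holds 1 value per library for 8861 melon-matched entries (8584 loci) and 23 libraries of squash nectaries. Per the study's methods, mRNA was made into barcoded TruSeq RNA libraries, which were pooled and sequenced as 50 bp paired ends over 2 lanes. Assembled contigs were matched to melon genes by blastn (E value 0.00001). The tool that counted reads is unnamed (not given in the sources used here). In the deposited table the authors' reads are scaled to each library's upper quartile and rounded, so the deposited values were treated as a score and not as raw counts, and count models were not used. The total reads behind each library are therefore unknown, and no counting interval was given. The table's own means, SDs, ratios and p-values were not used. The study's methods place the male stages at −24, −15, 0 and 9 hr, whereas the series text puts steps of 12 hr between stages.

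Tests used limma 3.58.1 in R 4.3.3 on log2(value + 1), so that changes of low genes are understated. A model of 8 group means was fitted to all 23 libraries with a mean-variance trend, and p-values were Benjamini-Hochberg adjusted over all 8861 genes. Calls needed both an adjusted p under 0.05 and 2-fold or more between the means on this scale. The difference between the sexes was tested as an interaction in the same fit. All tests were two-sided. No filter on low values was used in the first fit. Genes were named by a rule: the 12 widest called changes in each direction among annotated genes with groups that did not overlap and 100 or more reads on average in the higher one, the 6 widest sex differences in each direction under the same conditions, up to 3 called members per direction and the 2 members with the highest values in each list (46 process lists and 8 of markers), the 10 highest genes at 0 hr, and genes that the study followed. The rule gave 383 genes, of which not all are described, and 1 gene outside it is named as such. Lists were built from words in the gene names, and chance matches were removed after the names were read. The genes and lists were chosen with earlier results of these data known. Samples were grouped by GEO's labels. The alternatives were trimmed mean of M-values (TMM) and quantile scaling, fits of fewer libraries, pseudocounts of 10 and 0.5, a filter on a mean of 100, other variance models, a test against 2-fold, the replicate number as a block, and each library left out. The scripts were tested on simulated data.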

Additional observations from a re-analysis of the deposited data

Results flagged for a closer look

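The step between −24 and 0 hr was also measured in female nectaries, and the change differed between the sexes in 96 of the genes named above. Each value below is the male log2 change minus the female one, each change being 0 hr minus −24 hr, and each difference passed limma's test at an adjusted p under 0.05 with a size of at least 2-fold. The difference was negative in 78 of the genes and positive in 18, and in 21 the changes in male and female nectaries had opposite signs. Over all genes the balance ran the other way, with 1561 (17.6%) positive and 1311 (14.8%) negative. The named genes were picked for their male change, level, list or sex difference, so their balance is not that of all genes. In all values, a negative difference means a more positive change in female nectaries. Left out of the 96 was the like-named beta-carotene hydroxylase 2 gene (XM_008439103.1), with a difference of −8.03 (adjusted p = 4.8e-08 by limma). No cause of these differences was tested.

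The starch and sugar genes among those named were mostly on the negative side. Over the whole lists, starch degradation had 0 of 18 genes positive and 6 negative, and sucrose cleavage 1 of 12 positive and 7 negative. Sugar transporters had 5 of 29 positive and 4 negative, and sucrose synthesis 1 of 16 positive and 1 negative. Among all genes 17.6% were positive and 14.8% negative. The named genes of starch breakdown were *BAM1* (XM_008440214.1) −5.84, *AMY3* (XM_008448092.1) −4.38, pullulanase 1 (XM_008448594.1) −2.50, DPE2 (XM_008457528.1) −2.31 and maltose excess protein 1-like (XM_008464630.1) −1.50. Those of sucrose and raffinose metabolism were *SUS5* (XM_008464945.1) −4.33, galactosyltransferase 2 (XM_008462536.1) −3.60, sucrose-phosphatase 1 (XM_008444746.1) −2.73, CINV2 (XM_008440750.1) −2.49, *CWINV4* (XM_008446238.1) −2.34, invertase 2 (FJ231520.1) −2.03 and CINV1-like (XM_008455051.1) −1.01, and among sugar carriers *SWEET9* (XM_008443590.1) −8.64 and ERD6-like 6 (XM_008446496.1) −5.45. The second sucrose synthase gene and a plastid carrier were positive, the synthase (XM_008452746.1) 4.08 and plastidic glucose transporter 4 (XM_008463334.1) 1.38. In these genes the tests gave adjusted p from 7.7e-06 to 0.049.

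Of transcription factors and hormone genes, the widest differences were zinc-finger homeodomain protein 9 (XM_008448127.1) −10.58, *MYB305* (XM_008445303.1) −9.63, TIFY 5A-like (XM_008453625.1) −9.21, NAC 2-like (XM_008445966.1) −5.34, UNUSUAL FLORAL ORGANS-like (XM_008456037.1) −4.70 and heat stress factor C-1-like (XM_008460129.1) −4.04. Further NAC, bHLH, MYB and homeobox genes were bHLH79 (XM_008454936.1) −3.83, NAC 72-like (XM_008456444.1) −3.23, bHLH48 (XM_008444873.1) −2.68, BEL1-like 7 (XM_008462760.1) −2.56, bHLH68-like (XM_008467411.1) −2.08, MYB6-like (XM_008461443.1) −1.85 and NAC ATAF (EF173162.1) −1.70. Among genes with names tied to ethylene or abscisic acid the values were PYL4-like (XM_008444150.1) −2.69, TOE3 (XM_008442081.1) −2.03, RAP2-1 (XM_008446377.1) −2.02, RAP2-12-like (XM_008464027.1) −1.94 and the aminocyclopropane-carboxylate oxidase homolog (XM_008466495.1) −1.88. The stomatal signal EPIDERMAL PATTERNING FACTOR 1-like (XM_008458453.1) −1.88 was negative and the auxin repressor IAA26-like (XM_008449337.1) 1.69 positive. The tests gave adjusted p from 4.2e-10 to 0.047.

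Members of the clock list differed as well, with LHY-like (XM_008461600.1) −5.84, the other LHY-like gene (XM_008461602.1) −5.27, APRR7 (XM_008449024.1) −2.36 and EARLY FLOWERING 3 (XM_008464158.1) −1.88. APRR2 (XM_008467712.1) −3.80 was in the list by its name alone. Here the tests gave adjusted p from 6.5e-04 to 0.028.

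Nitrogen and transport genes were led by GABA transporter 1-like (XM_008448565.1) −8.70, NRT1/PTR 7.3-like (XM_008467720.1) −7.31 and ARG2-like (XM_008453336.1) −5.44. The others negative were plasma membrane ATPase 4 (XM_008453341.1) −3.05, NRT1/PTR 2.11-like (XM_008454950.1) −2.86, nitrate reductase (XM_008462231.1) −2.59, NRT1/PTR 5.2-like (XM_008462446.1) −1.75 and succinate-semialdehyde dehydrogenase (XM_008458063.1) −1.05. The positive ones were aquaporin PIP2-7 (XM_008449725.1) 5.24 and asparagine synthetase 2 (XM_008442373.1) 3.08. The tests gave adjusted p from 9.1e-06 to 0.045.

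Genes of plastids, mitochondria and peroxisomes were ubiquinol oxidase-like (XM_008467260.1) −7.21, chlorophyll a-b binding protein 8 (XM_008452076.1) −6.36, uncoupling protein 5-like (XM_008468672.1) −5.13, thioredoxin-like 1-1 (XM_008467111.1) −2.91 and the photosystem II 10 kDa polypeptide (XM_008453604.1) −2.67, beside the chromoplast protein (XM_008441828.1) −2.26, acyl-coenzyme A oxidase (XM_008455576.1) −2.15, succinyl-CoA ligase beta (XM_008461725.1) −2.11, AAE7 (XM_008440716.1) −1.72, carotene epsilon-monooxygenase (XM_008464290.1) −1.48 and prolycopene isomerase (XM_008444750.1) −1.28. In ascorbate metabolism, GDP-mannose 3,5-epimerase 2 (XM_008457701.1) −2.16 was negative and transmembrane ascorbate ferrireductase 1 (XM_008467651.1) 2.53 positive. The tests gave adjusted p from 1.0e-05 to 0.041.

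Of the named genes of protein synthesis, plastid L12-like (XM_008445304.1) −5.24 and plastid L1 (XM_008463600.1) −2.91 were negative and 60S L24-like (XM_008444557.1) 4.61, methionine--tRNA ligase (XM_008458934.1) 2.54, 60S L10-like (XM_008453563.1) 2.04 and 40S S6-like (XM_008446630.1) 2.02 positive. The whole lists lay on the positive side. Of 53 ribosomal protein genes of plastids and mitochondria, 39 were positive and 2 negative, beside 17.6% and 14.8% of all genes. Of 160 cytosolic ribosomal protein genes 156 were positive, of 38 ribosome biogenesis factors 26 and of 32 tRNA ligases 25, with 0 negative in these 3 lists by limma. Proteases and a ubiquitin ligase had ASPARTIC PROTEASE IN GUARD CELL 1-like (XM_008463762.1) −3.33, RD19a-like (XM_008449851.1) −3.25, U-box protein 11-like (XM_008456548.1) −2.97, vacuolar-processing enzyme-like (XM_008446271.1) −2.69, metacaspase-4-like (XM_008450009.1) −2.10 and the subtilisin-like protease (XM_008452714.1) 4.71. Of chromatin and replication, DNA polymerase alpha (XM_008459542.1) −1.98 was negative and NAP1-related protein 2 (XM_008442967.1) 4.55 positive. The tests gave adjusted p from 4.2e-07 to 0.037.

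Genes of specialized metabolism, walls and defence included a methyltransferase of the resveratrol type (XM_008457721.1) −11.13, salicylate carboxymethyltransferase-like (XM_008442534.1) −10.54, UDP-glycosyltransferase 82A1 (XM_008466454.1) −9.21 and thaumatin-like protein 1 (XM_008450326.1) −5.39. Smaller negative values were caffeoylshikimate esterase (XM_008467558.1) −3.30, isoflavone 2′-hydroxylase (XM_008442106.1) −3.11, pathogenesis-related protein 5-like (XM_008446460.1) −3.04, 4-coumarate--CoA ligase-like 6 (XM_008462230.1) −1.64, the polygalacturonase (XM_008462667.1) −1.56 and the xyloglucan endotransglucosylase/hydrolase (XM_008468726.1) −1.14. In fatty acid metabolism, acyl carrier protein 1-like (XM_008460274.1) 2.41 and long chain acyl-CoA synthetase 4-like (XM_008453721.1) 1.66 were positive. The tests gave adjusted p from 4.8e-08 to 0.0496.

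Of signalling and trafficking genes, calcium-dependent protein kinase 3 (XM_008453772.1) −1.59 and CBL-interacting kinase 2 (XM_008466042.1) −1.05 were negative and GF14 iota (XM_008447230.1) 1.67 and RABE1c (XM_008450157.1) 1.40 positive. The remaining values were those of the glycine-rich RNA-binding protein 3-like gene (XM_008451947.1) 5.55 and TSJT1-like (XM_008441655.1) 4.59. The tests gave adjusted p from 3.9e-05 to 0.046.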

How the results depend on the processing

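In none of the 17 alternative fits was a called gene called in the opposite direction. Many of these fits could not have turned a direction. Fits of fewer groups, other variance models, the low-value filter, the replicate block and the test against 2-fold leave each log2 change as it was. Only other scalings, other pseudocounts and libraries left out could change a sign. The genes XM_008439103.1 and DQ445483.1, whose changes fell under 2-fold with TMM scaling, are left out of the next counts. Of the 205 other called genes named above, 0 changed sign, and 44 lost the call under at least 1 alternative, 42 of them under a test against a 2-fold change. That test, stricter by construction, left 786 genes higher and 1279 lower. TMM scaling gave 1968 higher and 2185 lower, and quantile normalization 1600 higher and 1862 lower (46.2% of calls higher, with a median log2 change of −0.13 over all genes). Leaving out each library in turn gave 1401 to 1554 genes higher and 2483 to 2890 lower, and the counts under the other alternatives stayed within 1.5 times. The number of genes whose change differed between the sexes was 2935 with TMM scaling and ranged over 2311 to 3221 when libraries were left out, with both ends set by a female −24 hr library (the first and the third). Of 1564 counts of list members under alternatives, 155 moved by more than 1.5 times.

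Sugar transporters had 4 higher and 5 lower with the replicate block and 3 higher and 4 lower under the test against 2-fold, GABA genes 2 higher and 1 lower with the filter, starch degradation 3 higher and 2 lower under the test against 2-fold, cellulose genes 9 higher and 8 lower with quantile normalization, and pectin genes 8 higher and 9 lower with a pseudocount of 10. Quantile normalization ended the calls of NRT1/PTR 7.3-like (XM_008467720.1, adjusted p = 0.091), the alpha-galactosidase (XM_008447688.1, 0.051) and the chromoplast protein (XM_008441828.1, 0.067), and took vacuolar-processing enzyme-like (XM_008446271.1) to a log2 change of 0.87.

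Among the genes so checked, only those not called changed sign. With quantile normalization the log2 changes were −0.17 for At1g63170 (XM_008439865.1), −0.37 for glyceraldehyde-3-phosphate dehydrogenase 2 (XM_008441195.1), −0.16 for galactosyltransferase 6 (XM_008445736.1), −0.054 for NAC 2-like (XM_008445966.1), −0.50 for *SPS2* (XM_008458932.1), −0.26 for succinyl-CoA ligase beta (XM_008461725.1), −0.55 for galactosyltransferase 2 (XM_008462536.1) and −0.24 for enolase (XM_008464309.1). With TMM scaling they were 0.052 for *AMY3* (XM_008448092.1), 0.19 for GDP-mannose 3,5-epimerase 2 (XM_008457701.1) and 0.18 for BEL1-like 7 (XM_008462760.1). Leaving out each library in turn gave −0.0069 to 0.10 for At1g63170 (below 0 without the first 0 hr or the second −24 hr library), −0.030 to 0.68 for the dehydrogenase, −0.017 to 0.43 for enolase and −0.19 to 0.0033 for BEL1-like 7 (these 3 turned without the third 0 hr library), −0.15 to 0.79 for cell wall invertase 1-like (XM_008444640.1, turned without the third −24 hr library), −0.14 to 0.36 for NAC 2-like (without the second −24 hr or the third 0 hr library) and −0.021 to 0.098 for galactosyltransferase 2 (without the third −24 hr or the first 0 hr library). The cause was not tested.

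The replicate numbers were not shown to pair the libraries. Deviations from the group means correlated at 0.11, −0.0032 and 0.14 between male 0 hr and −24 hr libraries of the same number, and not every library correlated best with its own number. With the replicate number as a block, 1549 genes were higher and 2749 lower, and 2817 differed between the sexes. *SWEET9*, the LHY-like gene (XM_008461602.1) and glutamate decarboxylase 4-like (XM_008468584.1) had adjusted p = 0.057, 0.053 and 0.059 in that fit. Since the deposited values give no depth, the precision of low genes rests on 3 libraries per group.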

Other observations

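A second pair of male stages lies one day apart, +9 and −15 hr, in the evening, and shares no library with the morning pair. By the same limma test, 2142 genes (24.2%) were higher at +9 hr than at −15 hr and 1718 (19.4%) lower. Of the genes higher in the morning pair, 780 (50.2%) were also higher in the evening pair, which was 36.4% of the evening list. Of those lower in the morning pair, 798 (28.9%) were also lower in the evening pair, 46.4% of the evening list. A total of 124 genes were higher in the morning pair and lower in the evening pair, and 404 were lower in the morning pair and higher in the evening pair. The difference between the pairs was not tested.

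The 0 hr libraries differed along the same genes that separated the stages. In 842 (54.2%) of the genes called higher at 0 hr, the first 0 hr library was the highest and the third the lowest, against 23.6% of all genes. In 1333 (48.3%) of the genes called lower, the third was the highest and the first the lowest, against 31.4% of all genes. These shares come from the libraries that entered the calls and are given with no test. What set the third 0 hr library nearer to −24 hr was not tested.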
